A study of Arabidopsis thaliana with 18 samples.

Results

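The response to culture of 12-day leaves was read from 6 of the 18 libraries of the series. They were chosen by the age and time given in the sample titles: 3 libraries of leaves cultured for 1 day (1 DAC, 1 day after culture) and 3 libraries of leaves at time 0, before culture. The tissue was the first rosette leaf pair of 12-day-old seedlings of Arabidopsis thaliana (thale cress) in the ecotype Columbia (Col-0), the standard laboratory line. The seedlings grew in constant light on MS medium with sucrose. The cultured group was detached and kept for 1 day in constant light on Gamborg B5 medium that held no sucrose, while the time 0 group was taken at detachment with no treatment. Culture therefore joins wounding, separation from root and shoot, and a change of medium that includes the loss of sucrose. The other 12 libraries are the same pair of groups from seedlings of 9 and of 15 days, 3 libraries per group, and entered the same fit. The series text speaks of biological duplicates and the labels number 3 replicates without naming separate cultures. The p-values below therefore cover only the spread among these libraries, part of which may be technical.

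A detached leaf of this species can form new roots at its cut end. Wounding is followed by a burst of jasmonate and by the induction of AP2/ERF transcription factors, auxin made in the blade is carried to the cut and concentrates there, and cells near the vein take on the fate of root founder cells, marked by WOX11 and later by LBD16. The rest of the blade is meanwhile a source of carbon without a sink, in which starch, anthocyanin, senescence and stress genes are known to respond. In bulk leaf RNA, fewer cells of a type and less RNA per cell cannot be told apart, and a gene active in a few cells at the cut is diluted by the whole blade.

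Of 20952 genes tested, 4135 passed an adjusted p of 0.05 with edgeR's quasi-likelihood test. Of these, 2181 (10.4% of the genes tested) rose in cultured leaves and 1954 (9.33%) fell. These shares, 19.7% in either direction, are the background for the member counts of each list below. By size, 1548 rose and 1235 fell at least 2-fold, and 910 rose and 454 fell at least 4-fold. The median log2 fold change of all genes tested was -0.03. The 6 libraries of the groups did not overlap for 7537 genes (36%), called or not. All fold changes below are log2, cultured over time 0, with a standard error after the ± sign, and levels are CPM, counts scaled to a library of 1000000, in replicates 1, 2 and 3 of each group, in that order. CPM is not divided by gene length, so levels are set between groups and not between genes.

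Time 0 replicate 2 stood apart from the other libraries of its group. Its log2 CPM correlated at 0.935 and 0.948 with time 0 replicates 1 and 3, against 0.964 between those, while the cultured libraries correlated at 0.961 to 0.973 with each other. In it 569 genes lay over 4-fold above and 382 over 4-fold below the mean of the other time 0 replicates. These counts were 170 above and 525 below for time 0 replicate 1, and 202 and 130 for time 0 replicate 3. In the test that left it out, 1648 of 21226 genes rose (7.76%) and 1660 fell (7.82%), 15.6% together. With and without it 2944 genes were called in the same direction (1488 higher and 1456 lower), 1191 were called only with it and 351 only without it. Results that rest on this library are given both ways, and the plot of fold changes with and without it shows where they lie. Library totals were 30193080 to 34326525 expected counts after culture and 29664089 to 37974234 at time 0. The 100 genes with the highest counts took 18.4% to 22.5% of the counts in cultured leaves and 28.1% to 33% at time 0, and the scaling of the libraries sets how that reads: with library totals alone, without composition scaling, the median of all genes shifted by 0.32, with 4263 genes higher and 1062 lower, so that 80.1% of calls were higher against 52.7% with scaling. No other sign of a difference between libraries was in the labels, apart from replicate 3, whose labels use other tags in both groups.

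**Figure D1:**
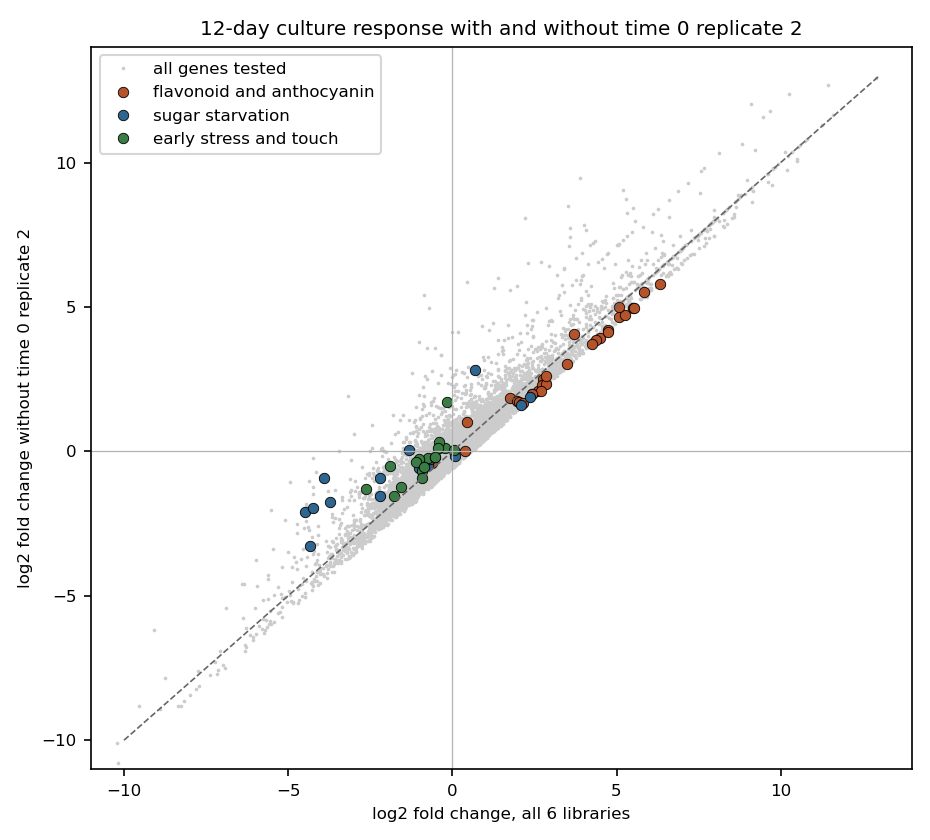
Each point is a gene, with its log2 fold change (cultured over time 0 leaves) from all 6 libraries on the x axis and from the fit without time 0 replicate 2 on the y axis. Most flavonoid genes lie just below the dashed line of equality, while several sugar starvation and early stress genes lie well above it, nearer to 0 without that library.

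Markers of tissues that a leaf sample could carry along were at or near 0 in both groups. Of 6 root markers only SCR, which leaf bundle sheath also expresses, passed the filter, with 18.4, 18.6 and 16.4 CPM in cultured leaves, against 27.7, 24.4 and 24.6 CPM at time 0 (log2 fold change -0.52 ± 0.19, adjusted p = 0.071). PLT1, PLT2 and RHD6 were at 0 in all 6 libraries. None of 7 shoot meristem and boundary markers passed the filter, WUS and CLV3 were at 0 in all 6 libraries, and of 4 seed storage genes only CRA1 passed, with 0, 0 and 0.059 CPM after culture and 0.157, 0.069 and 0.259 CPM at time 0. RBCS1A, a Rubisco subunit that defines green tissue, had the highest CPM of all genes in each of the 6 libraries. Of 4 epidermal and trichome markers tested, PDF1 and ATML1, both of the outer cell layer, fell, the trichome factor GL2 rose (0.78 ± 0.22) and FDH did not pass (-0.49 ± 0.21). PDF1 had 0.256, 0.27 and 0.649 CPM in cultured leaves, against 2.78, 1.52 and 5.26 CPM at time 0 (log2 fold change -3.03 ± 0.46, adjusted p = 0.000367), and its groups did not overlap. ATML1 was not called without cultured replicate 2 or 3 (adjusted p up to 0.0684), with a log2 fold change of -1.26 ± 0.33 in all libraries, and GL2 was not called without cultured replicate 3 or time 0 replicate 2 or 3 (adjusted p up to 0.11). The summed level of these markers was 233, 149 and 141 CPM in cultured leaves, against 303, 278 and 226 CPM at time 0, and the part of epidermal cells in the other results was not tested. No guard cell marker of 3 and no vascular marker of 6 passed the test.

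**Figure D2:**
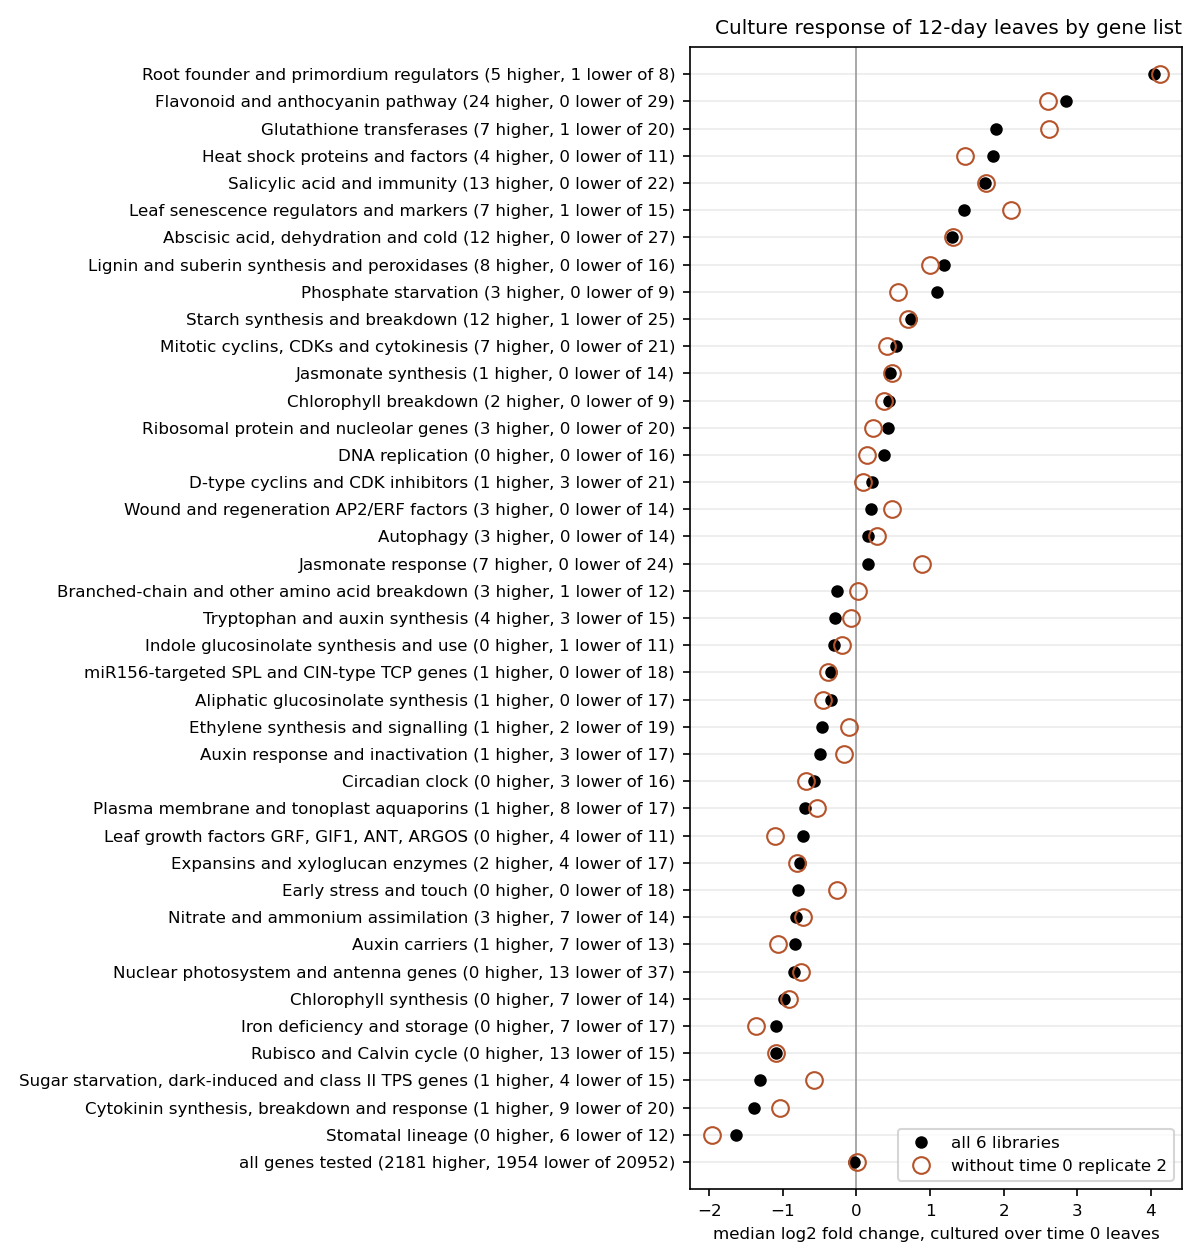
Median log2 fold change (cultured over time 0 leaves, x axis) of the tested members of each gene list, from all 6 libraries (filled) and without time 0 replicate 2 (open), with the number of members higher and lower out of those tested beside each name. With all 6 libraries root founder and flavonoid genes stand highest, stomatal lineage and cytokinin genes lowest, and all genes tested lie at -0.03. Without the filter on low counts the root founder median was 2.69, against 2.85 for flavonoid genes. Without time 0 replicate 2 glutathione transferase genes (2.62) stand above flavonoid genes (2.60), and iron genes (-1.37) below cytokinin genes (-1.04).

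The largest rises were of genes nearly silent in leaves at time 0. PRX37, a class III peroxidase, one of the secreted enzymes that act on cell wall phenolics, had 31.7, 6.5 and 40.2 CPM in cultured leaves, against 0 CPM in all 3 libraries at time 0, at least 763-fold higher against a floor of 3 counts over the time 0 libraries. TH8, a thioredoxin, had 59.1, 42.3 and 95.8 CPM after culture and 0.0392, 0.0345 and 0.0288 CPM at time 0, or 1930-fold higher (95% counting interval 661 to 9370). The lipid-transfer-like gene AT4G12500 had 129, 122 and 148 CPM in cultured leaves, against 0, 0.103 and 0.0288 CPM at time 0 (log2 fold change 11.43 ± 0.53, adjusted p = 5.37e-09). Its neighbour AT4G12490 (chromosome 4, 7409621 to 7410406, minus strand) had 332, 287 and 372 CPM after culture and 0.274, 0.379 and 0.23 CPM at time 0 (log2 fold change 10.12 ± 0.47, adjusted p = 5.37e-09). AT4G12495, on the opposite strand over the same bases, had 175, 118 and 172 CPM after culture and 0.235, 0.0345 and 0.0575 CPM at time 0. Strand use in the counting is not stated, so reads of these overlapping genes cannot be told apart. In each of these genes every cultured library lay far above every time 0 library. Groups that did not overlap were a condition of their choice.

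Others among the 12 largest rises are named next. LEA7 and AT3G17520 encode late embryogenesis abundant proteins, which protect cells from drying, and NADP-ME1 a malic enzyme. LEA7 had 0.284, 111 and 58.2 CPM in cultured leaves, against 0, 0.0345 and 0.0575 CPM at time 0, or 1710-fold higher (95% counting interval 583 to 8270). NADP-ME1 had 0.0852, 19 and 13.1 CPM in cultured leaves, against 0 CPM in all 3 libraries at time 0, at least 323-fold higher. In both, cultured replicate 1 was far below cultured replicates 2 and 3, though above every time 0 library, as the choice of genes required. UPI, a protease inhibitor of the potato inhibitor I family, had 24.1, 15.1 and 14.6 CPM after culture and 0, 0.0345 and 0 CPM at time 0. ATC, a relative of the flowering inhibitor TFL1, had 16.7, 15 and 18.9 CPM after culture and 0, 0 and 0.0288 CPM at time 0. GASA3, a gibberellin-responsive peptide gene, had 4.34, 20.7 and 10.9 CPM after culture and 0, 0.0345 and 0 CPM at time 0. These were even among the cultured libraries to within a few-fold and at or near 0 at time 0.

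Genes among the largest falls are known for unlike roles. ADS1, a fatty acid desaturase, had 0.0284, 0 and 0.0295 CPM in cultured leaves, against 6.55, 10.3 and 15 CPM at time 0, or 588-fold lower (95% counting interval 162 to 4860). Its homolog AT1G06360 fell as well (log2 fold change -7.82 ± 1.13, adjusted p = 0.000247). GASA6, a gibberellin-regulated peptide gene, had 4.49, 5.67 and 4.52 CPM in cultured leaves, against 266, 232 and 184 CPM at time 0 (log2 fold change -5.54 ± 0.57, adjusted p = 2.09e-05). The lipid-transfer-like AT5G48490 had 0.71, 0.243 and 0.148 CPM in cultured leaves, against 65.1, 52.4 and 50.9 CPM at time 0 (log2 fold change -7.24 ± 1.00, adjusted p = 0.000166). GER3, a germin-like protein of the cell wall, had 2.87, 0.972 and 4.72 CPM in cultured leaves, against 207, 44.7 and 416 CPM at time 0 (log2 fold change -6.29 ± 0.73, adjusted p = 5.05e-05), with time 0 replicate 2 lowest of its group but still above all cultured libraries. The glutaredoxin gene AT2G47880 (-6.17 ± 0.72), the extensin-like AT5G15780 (-5.98 ± 0.52) and the copper amine oxidase gene AT1G31690 (-5.51 ± 0.82) fell by a similar measure. In this set no cultured library reached the lowest time 0 library, which was a condition of the choice of these genes. CA1, a chloroplast carbonic anhydrase and one of the genes with the largest change in CPM, had 1123, 1257 and 1402 CPM in cultured leaves, against 10682, 7993 and 10154 CPM at time 0 (log2 fold change -2.93 ± 0.26, adjusted p = 8.58e-06).

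**Figure D3:**
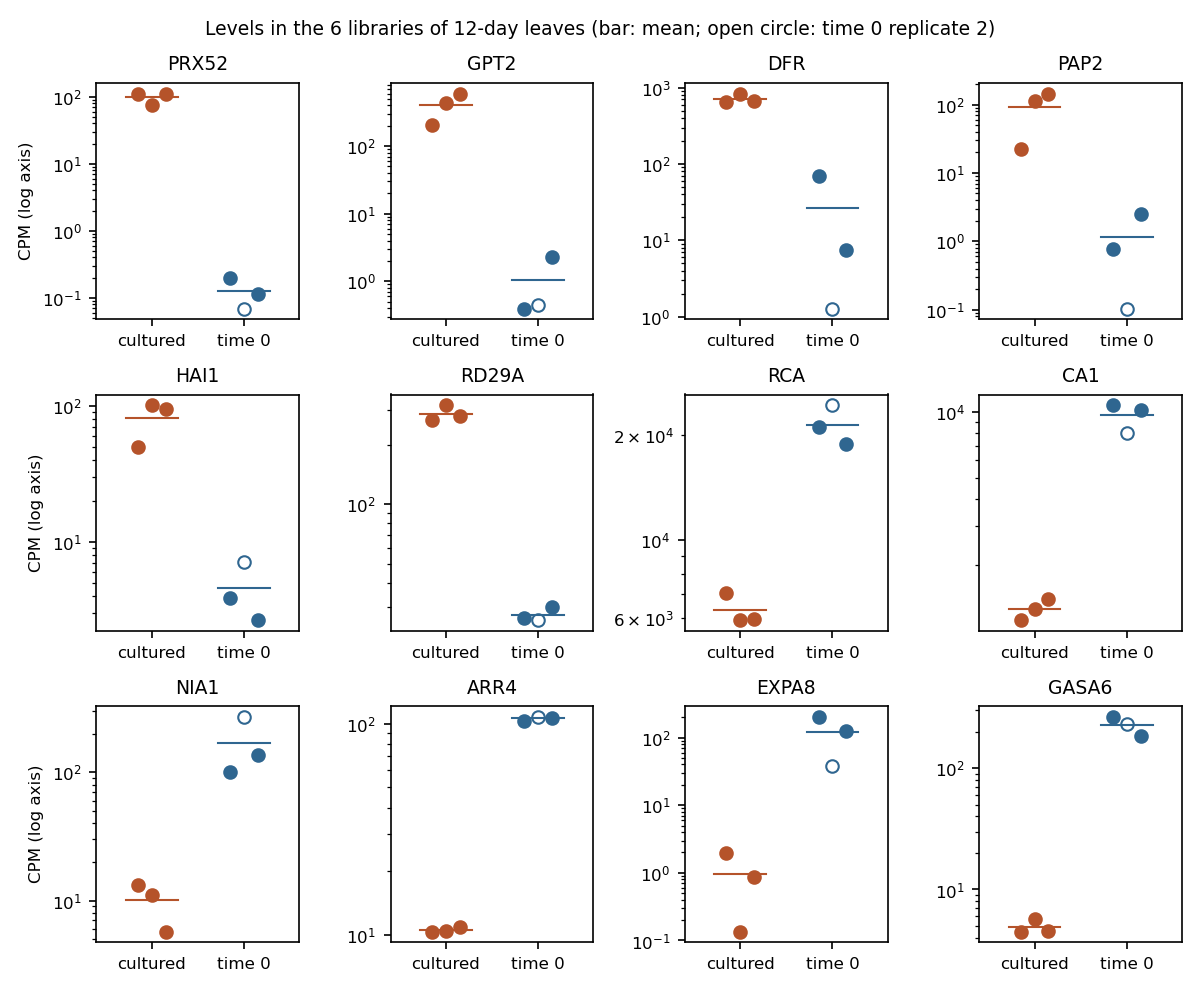
Level in CPM (log axis) of 12 genes in the 3 cultured libraries (left) and the 3 time 0 libraries (right) of 12-day leaves, with a bar at each mean and time 0 replicate 2 as an open circle. In all 12 panels the groups are apart, and time 0 replicate 2 is lowest of its group for PRX52, DFR, PAP2, RD29A, CA1 and EXPA8 and highest for HAI1, RCA, NIA1 and ARR4.

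Carbon fixation genes fell together. Of 15 Rubisco and Calvin cycle genes 13 fell and none rose, against 9.33% lower and 19.7% called in either direction among all genes, with a median of -1.09, and 12 of the 13 were called in each of the 6 fits that left out one 12-day library. RBCS3B, a small subunit of Rubisco, the enzyme that fixes carbon dioxide, had 4823, 3750 and 3715 CPM in cultured leaves, against 23376, 18557 and 16151 CPM at time 0 (log2 fold change -2.24 ± 0.29, adjusted p = 0.000103). RBCS1A had 13430, 14868 and 12387 CPM in cultured leaves, against 37768, 28632 and 30980 CPM at time 0 (log2 fold change -1.26 ± 0.23, adjusted p = 0.00159). RBCS1B had 2263, 2472 and 2317 CPM in cultured leaves, against 9415, 4696 and 10081 CPM at time 0 (log2 fold change -1.78 ± 0.37, adjusted p = 0.00327). These copies are close in sequence and can share reads, so their single values are uncertain, though all lay lower in every cultured library than in any time 0 library. RCA, the activase that frees Rubisco of bound sugars, had 7054, 5909 and 5940 CPM in cultured leaves, against 21033, 24275 and 18810 CPM at time 0 (log2 fold change -1.76 ± 0.25, adjusted p = 0.000211). Among the enzymes that regenerate the acceptor, HCEF1, a fructose bisphosphatase (-1.26 ± 0.21), phosphoribulokinase PRK (-1.06 ± 0.17) and SBPASE (-0.96 ± 0.17) fell. FBA2 was not called without cultured replicate 3 or time 0 replicate 1 (adjusted p up to 0.0717), against -0.95 ± 0.25 in all libraries. FBA1 and TKL1 did not pass, at -0.63 ± 0.26 and -1.09 ± 0.47. Summed over the list, the level was 40132, 40964 and 36587 CPM in cultured leaves, against 119262, 99572 and 100551 CPM at time 0.

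Part of the genes of the light reactions fell. Of 37 nuclear photosystem and antenna genes 13 fell and none rose, with a median of -0.85, 8 of them in each leave-one-out fit and between 8 and 15 across these fits. The lowest count, 8, came without cultured replicate 2. The count was 23 with a term for replicate 3, 21 with replicates 1 and 2 alone and 7 with library totals alone, with no gene called higher under these settings. PSBQA, an extrinsic subunit of photosystem II that helps to hold the oxygen-evolving cluster, had 1022, 862 and 949 CPM in cultured leaves, against 2751, 2596 and 2639 CPM at time 0 (log2 fold change -1.50 ± 0.19, adjusted p = 9.05e-05). PETC, the Rieske protein of the cytochrome complex, had 1271, 1417 and 1576 CPM in cultured leaves, against 3257, 3325 and 3507 CPM at time 0 (log2 fold change -1.24 ± 0.18, adjusted p = 0.000248). PSBP1 had 5329, 3671 and 4152 CPM in cultured leaves, against 10630, 9875 and 10408 CPM at time 0 (log2 fold change -1.23 ± 0.28, adjusted p = 0.00595). In these the groups were apart and the libraries of each group close together. PSAN of photosystem I (-1.45 ± 0.31) and the antenna genes LHCA6 (-1.39 ± 0.23) and LHCA5 (-0.86 ± 0.18) also fell. The abundant antenna genes had the same sign but did not pass. LHCA1 had 6402, 2760 and 1595 CPM in cultured leaves, against 10695, 11416 and 5243 CPM at time 0 (log2 fold change -1.35 ± 0.61, adjusted p = 0.141). LHCA3 had 5103, 2930 and 1910 CPM in cultured leaves, against 8416, 10899 and 5041 CPM at time 0 (log2 fold change -1.29 ± 0.45, adjusted p = 0.0539). Here the cultured libraries differed among themselves, replicate 1 highest and replicate 3 lowest, and replicate 3 was the lowest library in both groups. The groups overlapped, with time 0 replicate 3 below cultured replicate 1. LHCB1.5 also overlaps the annotated RNA AT2G08665, which shares its reads.

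Chlorophyll synthesis followed the same direction, with 7 of 14 genes lower and none higher (median -0.98), 4 of them in each leave-one-out fit, which is also the count without cultured replicate 2. CHLM, the methyltransferase after magnesium insertion, had 254, 211 and 177 CPM in cultured leaves, against 698, 948 and 599.7 CPM at time 0 (log2 fold change -1.80 ± 0.22, adjusted p = 8.63e-05). CHLD, a subunit of the magnesium chelatase, had 112, 82.5 and 96.6 CPM in cultured leaves, against 187, 193 and 191 CPM at time 0 (log2 fold change -0.98 ± 0.15, adjusted p = 0.000374), and CHLG, the chlorophyll synthase, fell as well (-0.80 ± 0.18). PORA, a protochlorophyllide reductase known from dark-grown seedlings, was low throughout, with 0.114, 0.027 and 0.0886 CPM after culture and 0.51, 1.24 and 0.978 CPM at time 0 (log2 fold change -3.53 ± 0.82, adjusted p = 0.00693). Of 9 genes of chlorophyll breakdown 2 rose: SGR2, a magnesium dechelatase homolog of the stay-green gene, with 0.653, 2.48 and 4.4 CPM in cultured leaves, against 0.353, 0.103 and 0.259 CPM at time 0 (log2 fold change 3.39 ± 0.73, adjusted p = 0.00427), and PPH, the pheophytinase, at 0.84 ± 0.24. PPH was not called without cultured replicate 3 or time 0 replicate 1 or 3 (adjusted p up to 0.115).

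The promoter of RCA is shown as an example of a gene that fell and holds an I-box near its start. The I-box, searched as GATAAG on both strands, is known from light-regulated promoters. It occurred in 33.3% of the 15 Calvin cycle promoters and in 45.9% of the 37 photosystem promoters, against 14.7% of 27431 promoters of the TAIR10.1 genome, each window running from 250 bases before the annotated start of the gene to 50 after it. Of the genes with a match 5 of 5 Calvin cycle genes and 6 of 17 photosystem genes fell, beside 13 of 15 and 13 of 37 over the whole lists. A match is a description of the letters and not of binding. The 250 bases before the start of RCA, at chr2:16573693-16573942 of TAIR10.1 on the minus strand, read 5′ to 3′ with the match in capitals, which begins 133 bases before the start.
RCA: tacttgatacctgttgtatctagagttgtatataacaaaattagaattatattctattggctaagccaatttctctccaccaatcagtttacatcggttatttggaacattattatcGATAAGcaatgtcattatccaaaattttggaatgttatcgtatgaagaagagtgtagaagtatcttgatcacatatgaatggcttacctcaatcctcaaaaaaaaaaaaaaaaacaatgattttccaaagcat

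Anthocyanin and flavonoid genes rose throughout the pathway. Of 29 tested members 24 rose and none fell, with a median of 2.85 (2.60 without time 0 replicate 2, where 23 rose), and 21 of the 24 were called in each leave-one-out fit. The pathway runs from phenylalanine through chalcone and dihydroflavonol to the red anthocyanins, which leaves make under strong light, sugar accumulation or nutrient shortage. At its entry PAL1, phenylalanine ammonia lyase, had 559.8, 672 and 711 CPM in cultured leaves, against 149, 55.7 and 81 CPM at time 0 (log2 fold change 2.77 ± 0.36, adjusted p = 0.000117), PAL2 rose by 1.75 ± 0.23 and C4H by 1.96 ± 0.27. CHS, chalcone synthase, had 1344, 1844 and 1406 CPM in cultured leaves, against 574, 84.3 and 196 CPM at time 0 (log2 fold change 2.43 ± 0.66, adjusted p = 0.0176). CHS was not called without cultured replicate 2 or time 0 replicate 2 or 3 (adjusted p up to 0.0678). F3H, which makes dihydroflavonols, had 884, 1665 and 1942 CPM in cultured leaves, against 85, 13.1 and 33.9 CPM at time 0 (log2 fold change 5.09 ± 0.69, adjusted p = 0.000159). F3′H, which adds a hydroxyl group to the B ring, had 276, 379 and 506 CPM in cultured leaves, against 10.9, 3.45 and 5.87 CPM at time 0 (log2 fold change 5.85 ± 0.58, adjusted p = 1.5e-05). PAL1 and CHS were well expressed at time 0 and rose several-fold, F3H and F3′H rose further from lower levels, and in none of them did the groups overlap.

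The late enzymes were nearly silent in time 0 replicate 2 and abundant in every cultured library. DFR, dihydroflavonol reductase, had 646, 830 and 659 CPM in cultured leaves, against 70.5, 1.28 and 7.57 CPM at time 0 (log2 fold change 4.75 ± 0.99, adjusted p = 0.00354, or 7.33 without time 0 replicate 1). LDOX, the anthocyanidin synthase, had 870.4, 1335 and 1361 CPM in cultured leaves, against 66.9, 1.38 and 10.2 CPM at time 0 (log2 fold change 5.51 ± 0.94, adjusted p = 0.000848). The sugar and acyl transferases that decorate the pigment followed, among them UF3GT (4.51 ± 0.92, or 6.82 without time 0 replicate 1), 5MAT (4.73 ± 0.87, or 7.11 without time 0 replicate 1) and AT4G14090 (4.38 ± 0.77), as did TT19, a glutathione transferase needed to bring the pigment to the vacuole (4.26 ± 0.83). For these genes time 0 replicate 1 was the highest library of its group and replicate 2 the lowest, as in DFR, but no time 0 library reached the lowest cultured one. Without time 0 replicate 1 the log2 fold change was 7.68 for LDOX and 6.12 for TT19. Their regulators rose too. PAP1 (MYB75), the main MYB activator of anthocyanin genes, had 185, 186 and 211 CPM in cultured leaves, against 11.9, 0.414 and 2.85 CPM at time 0 (log2 fold change 5.27 ± 1.01, adjusted p = 0.00194, or 6.88 without time 0 replicate 1). PAP2 (MYB90) had 22.3, 111 and 144 CPM in cultured leaves, against 0.784, 0.103 and 2.53 CPM at time 0 (log2 fold change 6.31 ± 1.05, adjusted p = 0.0007). Their bHLH partners TT8, with 44.9, 64.7 and 73.5 CPM after culture and 3.21, 0.138 and 0.719 CPM at time 0 (log2 fold change 5.52 ± 0.70, adjusted p = 0.000103), and GL3 (5.07 ± 0.80) rose, while EGL3 (0.39 ± 0.74) and the scaffold TTG1 (-0.61 ± 0.30) did not pass. MYB12, an activator of flavonol genes, rose by 2.42 ± 0.51, and the repressor MYBL2 did not pass (0.45 ± 0.62). BAN, which diverts the pathway to seed-coat tannins, had 1 count over the 6 libraries together. Time 0 replicate 2 was the lowest of its group for 25 of the 29 genes, and without it DFR stood at 4.19, adjusted p = 0.00292 and LDOX at 4.95, adjusted p = 0.000375. The summed level of the list was 8081, 11757 and 12050 CPM in cultured leaves, against 1934, 697 and 952 CPM at time 0.

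The promoters of F3H and DFR are shown because 10 of 30 flavonoid promoters (33.3%) held a G-box, CACGTG, a palindrome bound by bHLH and bZIP factors, against 7.68% of all promoters in the same 300-base window. Of the 9 tested genes with a match 8 rose: CHS, CHI, CHIL, F3H, DFR, UF3GT, PAP2 and MYB12, beside 24 of 29 over the list. The windows printed are the 250 bases before the start in TAIR10.1, F3H at chr3:19024942-19025191 on the plus strand and DFR at chr5:17166033-17166282 on the minus strand, 5′ to 3′, with the G-box in capitals. It begins 249 bases before the start of F3H and 14 before that of DFR.
F3H: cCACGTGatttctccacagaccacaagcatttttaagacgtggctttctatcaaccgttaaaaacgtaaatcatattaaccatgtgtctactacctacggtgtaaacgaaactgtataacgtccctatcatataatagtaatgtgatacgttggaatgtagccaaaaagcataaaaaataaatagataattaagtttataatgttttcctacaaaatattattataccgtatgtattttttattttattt
DFR: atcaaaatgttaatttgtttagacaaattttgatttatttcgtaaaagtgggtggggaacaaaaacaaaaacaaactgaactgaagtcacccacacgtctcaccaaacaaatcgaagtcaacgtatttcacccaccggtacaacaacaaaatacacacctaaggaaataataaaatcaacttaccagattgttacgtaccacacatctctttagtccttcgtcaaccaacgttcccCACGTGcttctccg

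**Figure D4:**
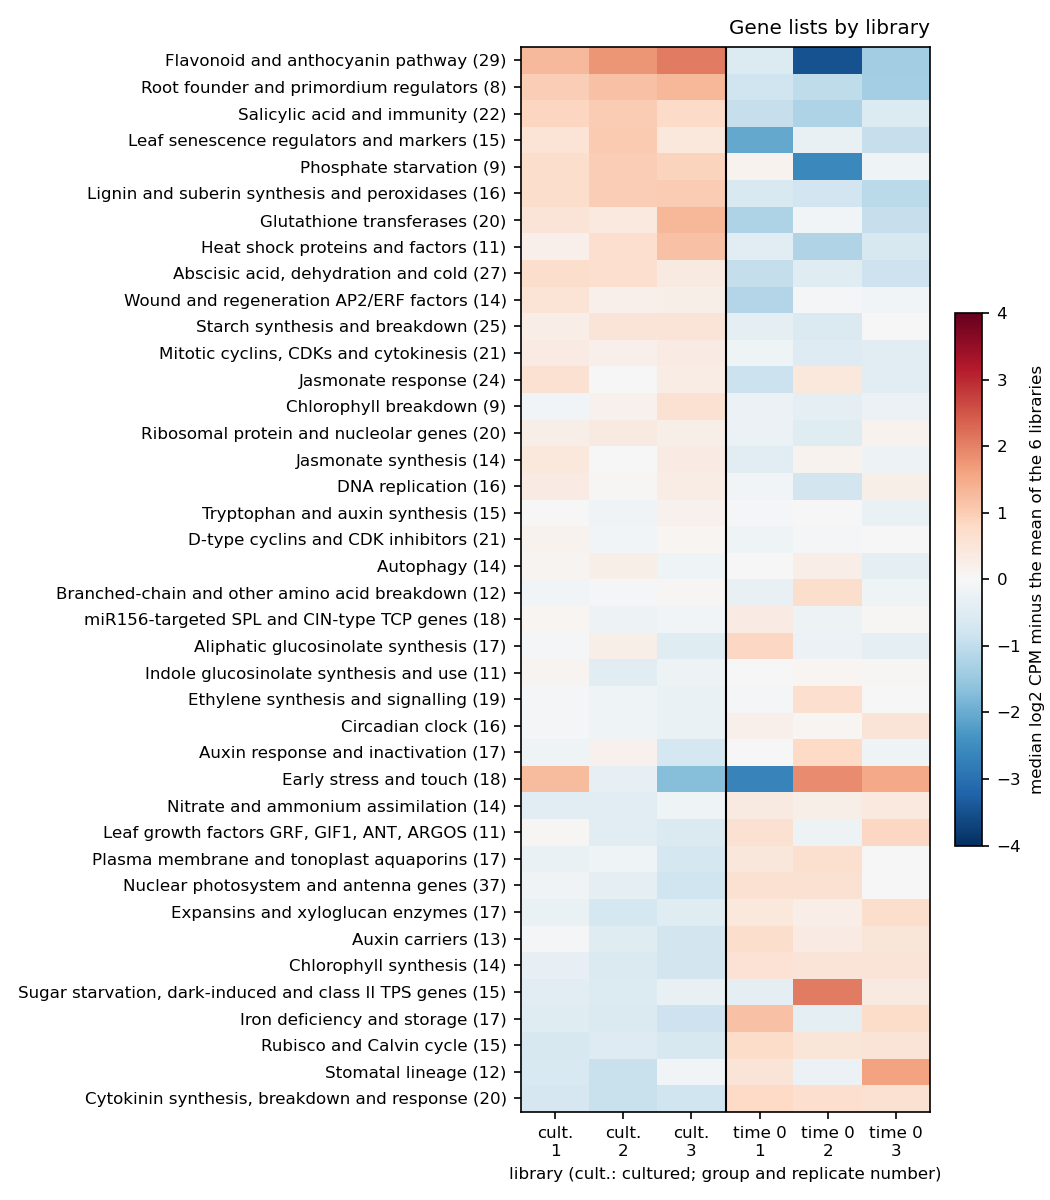
Median log2 CPM of each gene list in each library, minus the mean of the 6 libraries, for the 3 cultured libraries (left of the line) and the 3 time 0 libraries (right). Flavonoid genes are high in every cultured library and lowest in time 0 replicate 2, whereas early stress genes range from low to high within both groups.

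Starch genes rose on both sides of the pathway. Of 25 tested, 12 rose and 1 fell, with a median of 0.74; 8 rose and 1 fell in each leave-one-out fit. GPT2, which carries glucose phosphate into the plastid and is known to answer to sugar, had 204, 428 and 597 CPM in cultured leaves, against 0.392, 0.448 and 2.3 CPM at time 0 (log2 fold change 8.57 ± 1.25, adjusted p = 0.000264). APL3, a large subunit of ADP-glucose pyrophosphorylase, the first step of starch synthesis, had 499.8, 1210 and 1013 CPM in cultured leaves, against 50.3, 17.4 and 60.8 CPM at time 0 (log2 fold change 4.40 ± 0.63, adjusted p = 0.000221). Its leaf counterpart APL1 was the one that fell, with 189, 142 and 155 CPM in cultured leaves, against 365, 371 and 314 CPM at time 0 (log2 fold change -1.11 ± 0.17, adjusted p = 0.000316). The branching enzyme SBE2.2 rose by 1.25 ± 0.23. Among breakdown genes the debranching enzyme ISA3 had 311, 477 and 556 CPM in cultured leaves, against 33.3, 28.1 and 69.2 CPM at time 0 (log2 fold change 3.36 ± 0.46, adjusted p = 0.000165), the starch phosphatase SEX4 had 592, 888 and 812 CPM after culture and 132, 103 and 188 CPM at time 0 (log2 fold change 2.44 ± 0.33, adjusted p = 0.000143). BAM5, a beta-amylase outside the plastid, had 49.3, 147 and 244 CPM after culture and 1.84, 0.069 and 1.81 CPM at time 0 (log2 fold change 6.88 ± 0.81, adjusted p = 5.61e-05). The maltose exporter MEX1 (0.91 ± 0.19) and DPE2, which uses the maltose in the cytosol (1.2 ± 0.25), rose as well. In these genes each cultured library exceeded each time 0 library. Calls that did not hold in every leave-one-out fit were those of SEX1 (lost without cultured replicate 2 or time 0 replicate 1 or 2, adjusted p up to 0.0668), GBSS1 (lost without cultured replicate 2 or 3 or time 0 replicate 2 or 3, adjusted p up to 0.0768), PHS1 (lost without cultured replicate 2 or 3 or time 0 replicate 1 or 2, adjusted p up to 0.0955) and PHS2 (lost without cultured replicate 1, 2 or 3 or time 0 replicate 1 or 2, adjusted p up to 0.115). With all libraries they stood at 1.13 ± 0.30, 1.52 ± 0.42, 1.04 ± 0.30 and 1.08 ± 0.32. The plastid beta-amylases BAM1 and BAM3 did not pass (0.48 ± 0.27 and 0.20 ± 0.35).

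Genes of sugar starvation went the other way, in values that rest on time 0 replicate 2. Of 15 dark-induced and class II trehalose phosphate synthase (TPS) genes 4 fell and 1 rose, with a median of -1.31; without time 0 replicate 2 it was 1 and 1, with a median of -0.58, without cultured replicate 3 also 1 and 1, and without cultured replicate 1 it was 2 lower and 1 higher. ASN1 (DIN6), an asparagine synthetase induced in the dark and by starvation, had 15.3, 12.2 and 4.4 CPM in cultured leaves, against 7.45, 442 and 33 CPM at time 0 (log2 fold change -3.92 ± 1.88, adjusted p = 0.164). DIN10 had 30.4, 35.4 and 10.5 CPM in cultured leaves, against 46.4, 1240 and 152 CPM at time 0 (log2 fold change -4.24 ± 1.64, adjusted p = 0.083). SEN1 had 8.69, 4.02 and 0.59 CPM in cultured leaves, against 6, 263 and 31.7 CPM at time 0 (log2 fold change -4.50 ± 1.51, adjusted p = 0.0485, or -2.09 without time 0 replicate 2). In all 3 genes time 0 replicate 2 was far above every other library. Apart from it the groups overlapped in ASN1 and SEN1. In DIN10 time 0 replicates 1 and 3 also lay above every cultured library. The leave-one-out fits lost the calls of SEN1 (lost without cultured replicate 1, 2 or 3 or time 0 replicate 2, adjusted p up to 0.324), TPS11 (lost without cultured replicate 3 or time 0 replicate 2, adjusted p up to 0.135) and DRM1 (lost without cultured replicate 1 or 3 or time 0 replicate 2 or 3, adjusted p up to 0.134). TPS9 kept its fall in each leave-one-out fit, with 2.13, 2.62 and 1.53 CPM in cultured leaves, against 15.6, 87.7 and 25.2 CPM at time 0 (log2 fold change -4.35 ± 0.73, adjusted p = 0.000787) and -3.28, adjusted p = 0.00253 without that replicate. TPS5 rose, with 246, 254 and 300.3 CPM in cultured leaves, against 81.9, 12 and 61.9 CPM at time 0 (log2 fold change 2.36 ± 0.60, adjusted p = 0.0117), and was lowest in time 0 replicate 2. Time 0 replicate 2 was the highest of its group in 12 of the 15 genes, and the summed level was 528, 562 and 537 CPM in cultured leaves, against 439, 3330 and 786 CPM at time 0.

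Among nitrogen genes the nitrate and nitrite reductase genes named here fell. Of 14 nitrogen genes 7 fell and 3 rose (median -0.82), 5 and 3 of them in each leave-one-out fit. NIA1, a nitrate reductase, had 13.3, 11 and 5.73 CPM in cultured leaves, against 101, 271 and 137 CPM at time 0 (log2 fold change -4.08 ± 0.76, adjusted p = 0.00167). NIR1, the nitrite reductase of the next step, had 195, 162 and 139 CPM in cultured leaves, against 408, 480 and 385 CPM at time 0 (log2 fold change -1.36 ± 0.29, adjusted p = 0.00421). UPM1, which makes the siroheme that NIR1 carries, had 112, 93.4 and 70.7 CPM after culture and 261, 402 and 418 CPM at time 0 (log2 fold change -1.97 ± 0.32, adjusted p = 0.000582). GLN2, the plastid glutamine synthetase, had 1340, 1366 and 2006 CPM in cultured leaves, against 3519, 3127 and 5018 CPM at time 0 (log2 fold change -1.31 ± 0.31, adjusted p = 0.00791). The cytosolic GLN1;1 instead had 102, 100.2 and 103 CPM in cultured leaves, against 31.9, 32.3 and 43 CPM at time 0 (log2 fold change 1.51 ± 0.22, adjusted p = 0.000248), GLN1;3 rose by 1.44 ± 0.33 and GLN1;2 did not pass (-0.38 ± 0.30). ASN2, an asparagine synthetase, fell (-1.69 ± 0.41). NRT2.1, a high-affinity nitrate carrier best known from roots, was low but rose, with 2.73, 1.97 and 0.767 CPM after culture and 0.0392, 0.207 and 0.0575 CPM at time 0 (log2 fold change 4.13 ± 0.76, adjusted p = 0.0015). Groups were apart for each of the genes given with library values. Not called in every leave-one-out fit were NIA2 (lost without cultured replicate 1, 2 or 3 or time 0 replicate 1 or 2, adjusted p up to 0.15) and GLU1 (lost without cultured replicate 1 or 2 or time 0 replicate 1, 2 or 3, adjusted p up to 0.127), which stood at -1.48 ± 0.45 and -1.27 ± 0.39 with all libraries.

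Iron deficiency genes fell, and here leaving out time 0 replicate 2 added calls. Of 17 tested, 7 fell and none rose (median -1.09); without time 0 replicate 2, 11 fell. The count was 4 without time 0 replicate 1 or without cultured replicate 1, and 2 without cultured replicate 3. The 4 bHLH factors of subgroup Ib, which switch on iron uptake and transport when iron is short, were all near 0 after culture. BHLH101 had 0.0568, 0.108 and 0 CPM in cultured leaves, against 2.39, 0.586 and 4.69 CPM at time 0 (log2 fold change -5.43 ± 1.01, adjusted p = 0.00162). BHLH100 had 0 CPM in all 3 libraries in cultured leaves, against 1.22, 0.069 and 1.84 CPM at time 0, at least 38.5-fold lower against the floor. BHLH38 had 0.0284, 0 and 0 CPM after culture and 0.314, 0 and 2.67 CPM at time 0, or 120-fold lower (95% counting interval 21.1 to 4790), and BHLH39 was at least 19-fold lower. In this set time 0 replicate 2 was the lowest of its group. NAS4, a nicotianamine synthase, had 4.23, 3.59 and 2.95 CPM in cultured leaves, against 51.6, 4.59 and 26.6 CPM at time 0 (log2 fold change -2.94 ± 0.74, adjusted p = 0.0116). Some leave-one-out fits lost the calls of NAS4 (lost without cultured replicate 3 or time 0 replicate 1, adjusted p up to 0.058), bHLH38 (lost without cultured replicate 2 or 3 or time 0 replicate 3, adjusted p up to 0.128), bHLH39 (lost without cultured replicate 1, 2 or 3 or time 0 replicate 3, adjusted p up to 0.122) and BTS (lost without cultured replicate 1 or 3 or time 0 replicate 1, adjusted p up to 0.153). Without time 0 replicate 3 BHLH38 stood at -3.58 and BHLH39 at -4.10, and without time 0 replicate 1 BTS at -0.62. The iron storage gene FER1 had 611, 399 and 704 CPM in cultured leaves, against 126, 234 and 167 CPM at time 0 and did not pass (log2 fold change 1.70 ± 0.59, adjusted p = 0.0547), with groups that did not overlap.

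The promoter of BHLH100 is shown for its G-box, which 7 of 18 iron promoters held (38.9%, against 7.68% of all promoters); 3 of the 7 genes fell, BHLH38, BHLH100 and BTS, beside 7 of 17 over the list. The 250 bases before its start, at chr2:17199455-17199704 of TAIR10.1 on the minus strand, hold the match in capitals, beginning 91 bases before the start.
bHLH100: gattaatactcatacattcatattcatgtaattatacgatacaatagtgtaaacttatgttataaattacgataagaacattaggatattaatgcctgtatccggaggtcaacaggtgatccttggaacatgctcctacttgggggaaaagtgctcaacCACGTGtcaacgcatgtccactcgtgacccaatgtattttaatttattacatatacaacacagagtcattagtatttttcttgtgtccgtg

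Phosphate starvation genes gave few calls: 3 of 9 rose and none fell, in each leave-one-out fit. The median was 1.10 with all libraries and 0.57 without time 0 replicate 2, which was the lowest of its group for 8 of the 9. PHT1;1, a phosphate carrier, had 10.7, 7.72 and 8.12 CPM in cultured leaves, against 0.118, 0.0345 and 0 CPM at time 0 (log2 fold change 7.48 ± 0.77, adjusted p = 2.08e-05). PHT1;4 had 19, 13.7 and 30.4 CPM after culture and 1.14, 0.414 and 2.82 CPM at time 0 (log2 fold change 3.83 ± 0.68, adjusted p = 0.00116), and MGD3, which makes galactolipids that replace phospholipids, rose by 2.83 ± 0.66. Both carriers were higher in every cultured library than in any at time 0. SPX1, a phosphate sensor, did not pass, with 40.1, 57 and 45.8 CPM after culture and 20, 2.38 and 44.4 CPM at time 0 (log2 fold change 1.1 ± 0.85, adjusted p = 0.41), and was low in time 0 replicate 2 alone. The noncoding phosphate-starvation RNA IPS1 had 1 count over the 6 libraries together.

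Of the wound and regeneration AP2/ERF factors, 3 of 14 rose in all leave-one-out fits and none fell, with a median of 0.20. Among all genes tested 10.4% rose and 9.33% fell. ERF115, which drives the replacement of dead stem cells and wound-induced root formation, had 1.05, 1.32 and 1.03 CPM in cultured leaves, against 0 CPM in all 3 libraries at time 0, at least 33.9-fold higher. Its close homolog AT5G61890 (ERF114) had 5.2, 4.53 and 3.72 CPM in cultured leaves, against 0 CPM in all 3 libraries at time 0, at least 134-fold higher. RAP2.6L, a factor of the same clade that acts in tissue reunion, had 4, 11.7 and 17.2 CPM in cultured leaves, against 0.0784, 0.241 and 0.0575 CPM at time 0 (log2 fold change 6.43 ± 0.62, adjusted p = 1.32e-05). The levels of ERF115 were alike in the 3 cultured libraries and those of RAP2.6L were lowest in replicate 1. The other factors did not pass. WIND1, which promotes callus at wounds, had 137, 92.6 and 100.5 CPM in cultured leaves, against 75.9, 193 and 160.2 CPM at time 0 (log2 fold change -0.38 ± 0.33, adjusted p = 0.468). RRTF1, an early factor of the wound response, had 2.61, 0.135 and 0.0886 CPM in cultured leaves, against 0.118, 2.79 and 5.67 CPM at time 0 (log2 fold change -1.60 ± 1.43, adjusted p = 0.479). PLT3 and PLT5, root and shoot regeneration factors, stood at -0.01 ± 0.32 and 0.27 ± 0.44, and ESR1, a factor of shoot regeneration, had 0 counts in all 6 libraries.

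Regulators of root founder cells rose from near 0. Of 14 genes on this list 8 passed the filter, 5 rose and 1 fell, and 4 rises were called in each leave-one-out fit. The median was 4.05 over the tested. Members left out by the filter were at or near 0 counts in both groups, which raises this median. Without a filter on low counts it was 2.69 over 12 genes, with the same 5 higher and 1 lower. LBD16, an auxin-induced factor of root primordia, had 1.53, 1.13 and 1.45 CPM in cultured leaves, against 0.157, 0 and 0 CPM at time 0 (log2 fold change 4.78 ± 0.84, adjusted p = 0.00103, or 8.67 without time 0 replicate 1). LRP1, named for lateral root primordia, had 0.511, 0.972 and 0.62 CPM in cultured leaves, against 0 CPM in all 3 libraries at time 0, at least 21-fold higher. MAKR4, which acts in founder cell priming, had 0.795, 0.486 and 1.12 CPM after culture and 0.0392, 0.0345 and 0.0288 CPM at time 0, or 23.5-fold higher (95% counting interval 7.79 to 116). GATA23, a factor of founder cell identity, had 0.227, 0.378 and 0.384 CPM after culture and 0.0392, 0.0345 and 0 CPM at time 0, or 14.7-fold higher (95% counting interval 3.78 to 126). WOX11, which starts founder cells in leaf explants, rested on 22 counts, with 0.227, 0.27 and 0.118 CPM in cultured leaves, against 0 CPM in all 3 libraries at time 0, at least 6.17-fold higher (adjusted p = 0.0314). Calls that rested on single libraries were those of WOX11 (lost without cultured replicate 1 or 2 or time 0 replicate 1, 2 or 3, adjusted p up to 0.0792) and ARF19 (lost without cultured replicate 2 or 3 or time 0 replicate 2, adjusted p up to 0.0823). In the 4 others every cultured library was above every time 0 library, at levels under 2 CPM. ARF19, an auxin response factor upstream of the LBD genes, was the one that fell (-1.44 ± 0.38, or -0.95 without time 0 replicate 2), and ARF7, its partner, did not pass (0.10 ± 0.13). WOX12 and WOX7 had 2 counts each after culture and none at time 0, and WOX5, LBD29, LBD33 and PUCHI had none in any of the 6 libraries.

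Of 15 genes of tryptophan and auxin synthesis 4 rose and 3 fell (median -0.29), 3 rises in each leave-one-out fit and the only calls left without cultured replicate 2 or 3. TSB2 had 22.5, 24.6 and 25.3 CPM in cultured leaves, against 9.8, 5.1 and 5.81 CPM at time 0 (log2 fold change 1.81 ± 0.29, adjusted p = 0.000573). TSA1 had 88.8, 99.8 and 124 CPM after culture and 48.7, 38.2 and 53.5 CPM at time 0 (log2 fold change 1.15 ± 0.22, adjusted p = 0.00205). AT2G04400, an indole-3-glycerol phosphate synthase, had 74.2, 82.7 and 112 CPM after culture and 49.7, 37 and 45.5 CPM at time 0 (log2 fold change 1.02 ± 0.18, adjusted p = 0.00116). These encode late steps of tryptophan synthesis, and cultured libraries were all above time 0. The first enzyme ASA1, a known target of jasmonate signalling in wounded leaves, did not pass (log2 fold change -0.32 ± 0.34, adjusted p = 0.554). TAA1, the aminotransferase that opens the auxin branch, had 8.35, 7.18 and 5.84 CPM in cultured leaves, against 20.2, 8.17 and 21.6 CPM at time 0 (log2 fold change -1.22 ± 0.41, adjusted p = 0.0478). YUC2, a flavin monooxygenase that completes it, had 2.02, 0.918 and 0.827 CPM in cultured leaves, against 4.82, 2.28 and 2.39 CPM at time 0 (log2 fold change -1.33 ± 0.40, adjusted p = 0.0287). The leave-one-out fits lost the calls of TAA1 (lost without cultured replicate 1, 2 or 3 or time 0 replicate 1 or 3, adjusted p up to 0.153), TAR2 (lost without cultured replicate 1, 2 or 3 or time 0 replicate 2 or 3, adjusted p up to 0.102), YUC2 (lost without cultured replicate 2 or 3 or time 0 replicate 1, adjusted p up to 0.141) and PAT1 (lost without cultured replicate 2 or 3 or time 0 replicate 1, 2 or 3, adjusted p up to 0.157). TAR2 and PAT1 stood at -1.45 ± 0.42 and 0.62 ± 0.19 with all libraries. YUC5, YUC8 and YUC9, the wound-linked members, were low and uneven: YUC5 had 2.75, 0.324 and 0.118 CPM in cultured leaves, against 0.235, 6.83 and 2.44 CPM at time 0 (log2 fold change -1.57 ± 1.55, adjusted p = 0.528). YUC8 had 0.114, 0.027 and 0.118 CPM after culture and 0.392, 1.38 and 0.144 CPM at time 0 (log2 fold change -2.85 ± 1.01, adjusted p = 0.0606). YUC9 had 0.0852, 0.027 and 0.118 CPM after culture and 0.0784, 0.517 and 0 CPM at time 0 (log2 fold change -1.33 ± 1.24, adjusted p = 0.501).

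Auxin carriers fell, with 7 of 13 lower and 1 higher (median -0.83); 5 fell in each leave-one-out fit, and 5 calls remained without cultured replicate 2 or without cultured replicate 3. PIN4, an efflux carrier, had 60, 31.9 and 29.3 CPM in cultured leaves, against 131, 116 and 92.5 CPM at time 0 (log2 fold change -1.48 ± 0.29, adjusted p = 0.00251). AUX1, the influx carrier, had 32.9, 21.8 and 23.6 CPM in cultured leaves, against 72.3, 50.5 and 77.8 CPM at time 0 (log2 fold change -1.36 ± 0.26, adjusted p = 0.00205), and ABCB19, another efflux carrier, fell (-1.33 ± 0.28). Their groups were apart, with cultured replicate 1 the highest of the cultured libraries. LAX1 (-1.13 ± 0.22) and LAX2 (-0.81 ± 0.18) fell too, and PIN3 and PIN7 did not pass (-0.52 ± 0.23 and -0.44 ± 0.40). Not called in every leave-one-out fit were PIN5 (lost without cultured replicate 2 or 3 or time 0 replicate 1, adjusted p up to 0.0938) and LAX3 (lost without cultured replicate 2 or 3, adjusted p up to 0.0598).

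Among 17 auxin response genes 3 fell and 1 rose (median -0.50), beside 9.33% lower and 10.4% higher among all genes tested. IAA7, a repressor of auxin signalling, had 114, 59.3 and 66.3 CPM in cultured leaves, against 305, 262 and 220 CPM at time 0 (log2 fold change -1.72 ± 0.31, adjusted p = 0.00124). IAA4 had 29.6, 31.7 and 27 CPM in cultured leaves, against 64.7, 72 and 88.7 CPM at time 0 (log2 fold change -1.35 ± 0.22, adjusted p = 0.000589). GH3.2, which inactivates auxin by joining it to amino acids, had 5.31, 3 and 3.72 CPM in cultured leaves, against 0.157, 0.897 and 0.144 CPM at time 0 (log2 fold change 3.32 ± 0.93, adjusted p = 0.0208). GH3.3 had 9.23, 4.94 and 15.7 CPM after culture and 0.784, 4.21 and 0.46 CPM at time 0 (log2 fold change 2.45 ± 0.98, adjusted p = 0.0925). For both, time 0 replicate 2 was the highest of its group, and without it GH3.2 stood at 4.71, adjusted p = 0.0111, GH3.3 at 4.01, adjusted p = 0.0264 and GH3.5 at 2.79, adjusted p = 0.00192. Some leave-one-out fits lost the calls of GH3.2 (lost without cultured replicate 1 or time 0 replicate 1 or 3, adjusted p up to 0.0751) and IAA6 (lost without cultured replicate 2 or 3 or time 0 replicate 2, adjusted p up to 0.105). IAA19 and IAA29, classic auxin-induced genes, did not pass (-1.35 ± 0.64 and -1.85 ± 0.69).

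The cytokinin response fell. Of 20 genes 9 fell and 1 rose (median -1.39, -1.04 without time 0 replicate 2), all but ARR5 in each leave-one-out fit. Type-A response regulators are induced by cytokinin and are used as its readout. ARR4 had 10.4, 10.4 and 10.9 CPM in cultured leaves, against 102, 108 and 107 CPM at time 0 (log2 fold change -3.32 ± 0.35, adjusted p = 2.2e-05). ARR9 had 7.75, 7.61 and 6.91 CPM in cultured leaves, against 42.7, 38 and 42 CPM at time 0 (log2 fold change -2.46 ± 0.32, adjusted p = 0.000112). ARR7 had 0.511, 0.486 and 0.62 CPM in cultured leaves, against 15, 23.5 and 9.84 CPM at time 0 (log2 fold change -4.89 ± 0.86, adjusted p = 0.0011). In all of these the cultured libraries were alike and far below time 0. ARR6 was nearly silent after culture, with 0, 0.027 and 0 CPM in cultured leaves, against 4.31, 10.8 and 1.52 CPM at time 0, or 567-fold lower (95% counting interval 101 to 22500), and ARR15 and ARR16 fell (-4.06 ± 0.78 and -3.92 ± 0.72). ARR5 fell with all libraries (-2.34 ± 0.74, or -1.47 without time 0 replicate 2). ARR5 was not called without cultured replicate 1, 2 or 3 or time 0 replicate 2 (adjusted p up to 0.195). The receptor AHK4 had 1.31, 1.29 and 1.39 CPM in cultured leaves, against 6.35, 3.52 and 7.91 CPM at time 0 (log2 fold change -2.15 ± 0.34, adjusted p = 0.000523), while AHK2 and AHK3 did not pass (-1.13 ± 0.48 and -0.30 ± 0.26). CKX4, a cytokinin oxidase, had 2.5, 1.21 and 2.12 CPM in cultured leaves, against 12.2, 17.8 and 11.6 CPM at time 0 (log2 fold change -2.83 ± 0.35, adjusted p = 8.28e-05). IPT7, which makes cytokinin, was the one that rose, with 3.01, 1.73 and 1.53 CPM in cultured leaves, against 0, 0 and 0.0575 CPM at time 0, or 93.3-fold higher (95% counting interval 25.5 to 776), whereas IPT3 did not pass (-0.03 ± 0.52).

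Jasmonate genes were uneven. Of 24 response genes 7 rose and none fell (median 0.16, 0.89 without time 0 replicate 2), but 1 of the 7, CORI3, was called in each leave-one-out fit. The count was 4 without time 0 replicate 2 or without cultured replicate 1 or 2, 3 without cultured replicate 3 and 1 without time 0 replicate 3, while without time 0 replicate 1 it was 4 higher and 2 lower. CORI3, a coronatine-induced aminotransferase homolog, had 2126, 2616 and 2391 CPM in cultured leaves, against 314, 148 and 211 CPM at time 0 (log2 fold change 3.41 ± 0.44, adjusted p = 0.000117). VSP2, a vegetative storage protein, had 588, 614 and 711 CPM in cultured leaves, against 356, 25.7 and 59.9 CPM at time 0 (log2 fold change 2.11 ± 0.69, adjusted p = 0.0419, or 3.90 without time 0 replicate 1). VSP1 had 39.9, 147 and 306 CPM in cultured leaves, against 31.8, 2.21 and 12.2 CPM at time 0 (log2 fold change 3.41 ± 0.89, adjusted p = 0.0138) and TAT3, a tyrosine aminotransferase, rose by 3.54 ± 1.08. Calls that did not hold in every leave-one-out fit were those of VSP2 (lost without cultured replicate 1, 2 or 3 or time 0 replicate 2 or 3, adjusted p up to 0.129), VSP1 (lost without cultured replicate 3 or time 0 replicate 3, adjusted p up to 0.0648) and TAT3 (lost without cultured replicate 2 or 3 or time 0 replicate 1, 2 or 3, adjusted p up to 0.0952). The repressors JAZ1 to JAZ10, early marks of jasmonate signalling, did not pass: JAZ10 had 1.79, 2.21 and 3.45 CPM in cultured leaves, against 1.33, 13.9 and 1.81 CPM at time 0 (log2 fold change -1.19 ± 0.89, adjusted p = 0.394) and was highest in time 0 replicate 2. Without that library JAZ3 passed (0.94, adjusted p = 0.0201). Of 14 synthesis genes 1 rose, ACX1 (log2 fold change 0.80 ± 0.26, adjusted p = 0.0403), and ACX1 was not called without cultured replicate 1, 2 or 3 or time 0 replicate 1 or 3 (adjusted p up to 0.147). Without time 0 replicate 2, 3 synthesis genes rose, among them AOC1 (1.56, adjusted p = 0.00532) and AOC3 (3.28, adjusted p = 0.0156). LOX2, the lipoxygenase of the pathway, had 4672, 2131 and 7270 CPM in cultured leaves, against 2322, 1060 and 2894 CPM at time 0 (log2 fold change 1.17 ± 0.66, adjusted p = 0.247).

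Salicylic acid and immunity genes rose, with 13 of 22 higher and none lower (median 1.75), 9 of them in each leave-one-out fit. PR1, the classic marker of salicylic acid signalling, had 16.2, 34.7 and 54.9 CPM in cultured leaves, against 0.431, 0.207 and 0.374 CPM at time 0 (log2 fold change 6.70 ± 1.42, adjusted p = 0.00391). PR2, a glucanase, had 66.2, 206 and 231 CPM in cultured leaves, against 7.92, 9.41 and 2.62 CPM at time 0 (log2 fold change 4.66 ± 1.02, adjusted p = 0.00489). PR5 had 48, 48.8 and 31.4 CPM after culture and 18.1, 5.59 and 11.7 CPM at time 0 (log2 fold change 1.86 ± 0.35, adjusted p = 0.00177). FMO1 and ALD1 make the systemic signal N-hydroxypipecolic acid. FMO1 had 1.76, 2.19 and 5.05 CPM in cultured leaves, against 0 CPM in all 3 libraries at time 0, at least 88-fold higher. ALD1 had 0.681, 1.73 and 0.974 CPM in cultured leaves, against 0, 0.0345 and 0 CPM at time 0, or 102-fold higher (95% counting interval 17.9 to 4050). Groups were apart for each, with cultured replicate 1 lowest of its group for PR1 and PR2. The cytochrome P450 genes CYP71A12, with 10.8, 6.86 and 15.1 CPM after culture and 0.0784, 0.552 and 0.316 CPM at time 0 (log2 fold change 5.08 ± 1.19, adjusted p = 0.00744), and CYP71A13 (7.75 ± 1.72), which make the antimicrobial camalexin, rose as well. The leave-one-out fits lost the calls of EDS5 (lost without cultured replicate 2 or 3 or time 0 replicate 1 or 3, adjusted p up to 0.0854), SARD1 (lost without time 0 replicate 1 or 3, adjusted p up to 0.0652), PAD3 (lost without cultured replicate 1, 2 or 3 or time 0 replicate 1, 2 or 3, adjusted p up to 0.149) and PBS3 (lost without cultured replicate 2 or 3 or time 0 replicate 2 or 3, adjusted p up to 0.12). With all libraries they stood at 1.87 ± 0.54, 1.57 ± 0.42, 3.60 ± 1.18 and 1.65 ± 0.52. The salicylic acid synthesis gene ICS1 and the receptor NPR1 did not pass (0.56 ± 0.37 and -0.28 ± 0.26).

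Few ethylene genes were called. Of 19, 1 rose and 2 fell (median -0.47), beside 10.4% higher and 9.33% lower among all genes tested. ACS2, which makes the ethylene precursor, had 1.62, 2.1 and 2.18 CPM in cultured leaves, against 0, 0.069 and 0.0288 CPM at time 0, or 58.6-fold higher (95% counting interval 19.8 to 286). The groups were apart. EBF1 fell with all libraries (-0.77 ± 0.20). EBF1 was not called without cultured replicate 2 or 3 (adjusted p up to 0.0807). ACS6, a wound-induced synthase, had 166, 69.4 and 17.1 CPM in cultured leaves, against 14.1, 131 and 172 CPM at time 0 (log2 fold change -0.33 ± 1.00, adjusted p = 0.854), with the libraries of each group spread over several-fold.

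Abscisic acid and dehydration genes rose, with 12 of 27 higher and none lower (median 1.3), 8 of them in each leave-one-out fit. RD29A, a gene with both drought and abscisic acid elements, had 266, 317 and 279.8 CPM in cultured leaves, against 26.4, 25.8 and 30.1 CPM at time 0 (log2 fold change 3.39 ± 0.57, adjusted p = 0.000793). HAI1, a phosphatase induced by the hormone, had 50.3, 102 and 95 CPM in cultured leaves, against 3.84, 7.14 and 2.65 CPM at time 0 (log2 fold change 4.18 ± 0.71, adjusted p = 0.000836). COR15A, a chloroplast protein that guards membranes against freezing, had 536, 1391 and 948 CPM in cultured leaves, against 172, 50 and 79.3 CPM at time 0 (log2 fold change 3.26 ± 0.63, adjusted p = 0.00199). In these every cultured library was above every time 0 library. RD29B had 0.511, 86.6 and 81.5 CPM in cultured leaves, against 0.118, 0.138 and 0.115 CPM at time 0 (log2 fold change 8.79 ± 1.43, adjusted p = 0.000607), and the dehydrin gene RAB18 had 34.2, 776 and 387 CPM in cultured leaves, against 29.1, 19.6 and 35 CPM at time 0 (log2 fold change 3.84 ± 0.96, adjusted p = 0.0107). In cultured replicate 1 both were far below the other cultured libraries, in RD29B still above every time 0 library and in RAB18 within the range of time 0. RAB18 was not called without cultured replicate 2 (adjusted p up to 0.0518). LEA4-5, another protectant, showed the same split, with 2.56, 57.8 and 60.3 CPM after culture and 0.627, 0.379 and 0.805 CPM at time 0 (log2 fold change 6.04 ± 1.18, adjusted p = 0.00224). CYP707A1, which breaks the hormone down, rose by 2.05 ± 0.46, and NCED3, the step that limits its synthesis, did not pass (log2 fold change 1.3 ± 0.71, adjusted p = 0.226). Not called in every leave-one-out fit were ABI2 (lost without cultured replicate 2 or 3 or time 0 replicate 1, 2 or 3, adjusted p up to 0.149), ABF3 (lost without cultured replicate 2 or 3 or time 0 replicate 2 or 3, adjusted p up to 0.0896) and RD22 (lost without cultured replicate 1 or 2 or time 0 replicate 2 or 3, adjusted p up to 0.112). The cold factors CBF1, CBF2 and CBF3 did not pass (-0.09 ± 1.58, -1.34 ± 1.54 and 2.27 ± 1.16).

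The promoter of RD29B is shown for its cluster of abscisic acid response elements, searched as ACGTGGC or ACGTGTC on both strands. They occurred in 8 of 27 promoters of the list (29.6%), against 7.65% of all, and 4 of the 8 genes rose, CYP707A1, RD29B, RAB18 and LEA4-5, beside 12 of 27 over the list. The element shares its core with the G-box. The 250 bases before the start, at chr5:21236771-21237020 of TAIR10.1 on the plus strand, hold 3 matches in capitals, which begin 63, 38 and 10 bases before the start.
RD29B: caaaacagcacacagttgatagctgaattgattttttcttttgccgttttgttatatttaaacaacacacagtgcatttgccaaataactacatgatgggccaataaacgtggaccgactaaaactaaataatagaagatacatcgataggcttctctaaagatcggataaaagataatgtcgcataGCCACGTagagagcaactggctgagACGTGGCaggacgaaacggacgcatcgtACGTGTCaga

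Of 11 heat shock genes 4 rose and none fell, 2 in each leave-one-out fit, and 2 without time 0 replicate 2 or without time 0 replicate 3. HSP21, a plastid small heat shock protein, had 0, 9.47 and 2.75 CPM in cultured leaves, against 0.0392, 0.0345 and 0 CPM at time 0, or 187-fold higher (95% counting interval 51.4 to 1550), with no count in cultured replicate 1. HSP17.4 had 0.341, 1.73 and 0.472 CPM after culture and 0, 0.069 and 0.0575 CPM at time 0 (log2 fold change 4.16 ± 0.98, adjusted p = 0.00753). Some leave-one-out fits lost the calls of BIP3 (lost without cultured replicate 3 or time 0 replicate 2 or 3, adjusted p up to 0.0696) and HSP17.6II (lost without cultured replicate 2 or 3 or time 0 replicate 2 or 3, adjusted p up to 0.0771). HSP101 did not pass (-0.34 ± 0.33).

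The early stress and touch genes, known to respond within minutes to handling, gave no call: none of 18 passed edgeR's test with or without time 0 replicate 2, 0 had an unadjusted p under 0.05 and 0 were called by DESeq2. ZAT10, a zinc finger factor, had 235, 70.2 and 13.3 CPM in cultured leaves, against 6.43, 251 and 249 CPM at time 0 (log2 fold change -0.67 ± 1.21, adjusted p = 0.746). TCH3, a calmodulin-like gene induced by touch, had 402, 192 and 178 CPM in cultured leaves, against 90.8, 2151 and 631 CPM at time 0 (log2 fold change -1.89 ± 1.17, adjusted p = 0.286). WRKY33 had 159, 66.3 and 31.7 CPM in cultured leaves, against 24.5, 321 and 181 CPM at time 0 (log2 fold change -1.03 ± 0.88, adjusted p = 0.456). Time 0 replicates 2 and 3 and cultured replicate 1 were high, and time 0 replicate 1 and cultured replicate 3 low, so the groups overlapped. The summed level was 2530, 1048 and 544 CPM in cultured leaves, against 380, 5465 and 3241 CPM at time 0. The part of these genes' spread in the other results was not tested.

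Peroxidase and lignin genes rose, with 8 of 16 tested higher and none lower (median 1.19), 6 in each leave-one-out fit. PRX52 (AT5G05340, chromosome 5, 1578869 to 1580875, minus strand), a class III peroxidase with a role in lignin of stems, had 110.3, 75.9 and 111 CPM in cultured leaves, against 0.196, 0.069 and 0.115 CPM at time 0 (log2 fold change 9.60 ± 0.40, adjusted p = 3.83e-09). PRX71, a peroxidase that limits growth when walls are damaged, had 249.6, 151 and 335 CPM in cultured leaves, against 1.69, 8.17 and 2.44 CPM at time 0 (log2 fold change 5.90 ± 1.32, adjusted p = 0.00556). PRX34, which produces hydrogen peroxide in defence, had 314, 416 and 475 CPM in cultured leaves, against 74.1, 68.9 and 54.9 CPM at time 0 (log2 fold change 2.61 ± 0.31, adjusted p = 6.04e-05). The groups were far apart in all 3. Of the monolignol enzymes, CAD5 had 109, 140.4 and 147 CPM after culture and 26.1, 23.7 and 23.4 CPM at time 0 (log2 fold change 2.44 ± 0.26, adjusted p = 2.6e-05). CCR2, the defence-linked reductase, had 5.93, 7.61 and 6.02 CPM after culture and 0.235, 0.655 and 0.173 CPM at time 0 (log2 fold change 4.20 ± 0.89, adjusted p = 0.00377), while CCR1, its developmental counterpart, CAD4 and HCT did not pass (0.34 ± 0.34, -0.33 ± 0.34 and 0.09 ± 0.36). FAH1 stood at 1.24 ± 0.39 with all libraries. FAH1 was not called without cultured replicate 1, 2 or 3 or time 0 replicate 2 or 3 (adjusted p up to 0.127). The suberin regulator MYB41 had 0.0568, 0.324 and 0.177 CPM after culture and 0 CPM in all 3 libraries at time 0, below the filter on counts.

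Of 20 glutathione transferases 7 rose and 1 fell (median 1.89, 2.62 without time 0 replicate 2), 6 rises in each leave-one-out fit. GSTF6, also needed for camalexin, had 2240, 3667 and 2722 CPM in cultured leaves, against 101, 149 and 42.5 CPM at time 0 (log2 fold change 4.88 ± 0.96, adjusted p = 0.00239). GSTU24, a detoxifying enzyme of the tau class, had 30, 25.3 and 72.8 CPM in cultured leaves, against 1.69, 2.17 and 1.81 CPM at time 0 (log2 fold change 4.49 ± 0.58, adjusted p = 0.000112), and GSTU25 rose by 5.62 ± 0.91. The groups were apart for the first pair. GSTF8 fell (-1.07 ± 0.33), and GSTF8 was not called without cultured replicate 2 or 3 or time 0 replicate 2 or 3 (adjusted p up to 0.14). Glucosinolate genes were close to even. Of 17 aliphatic genes 1 rose, MAM3 (log2 fold change 2.01 ± 0.42, adjusted p = 0.00362), a chain-elongating enzyme, with the regulators MYB28 and MYB29 at -0.56 ± 0.48 and -0.72 ± 0.78, and of 11 indole genes 1 fell, CYP79B3 (-1.40 ± 0.43). CYP79B3 was not called without cultured replicate 2 or 3 or time 0 replicate 1 or 2 (adjusted p up to 0.133).

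Mitotic genes were slightly higher after culture, in calls that were mostly fragile. Of 21 cyclin, kinase and cytokinesis genes 7 rose and none fell (median 0.54), 2 in each leave-one-out fit. The count was 4 without any one of cultured replicates 1 and 2 and time 0 replicates 1 and 2, and 3 without cultured replicate 3 or time 0 replicate 3. CYCB1;3, a cyclin of entry into mitosis, had 2.67, 2.32 and 2.69 CPM in cultured leaves, against 1.18, 0.655 and 1.12 CPM at time 0 (log2 fold change 1.37 ± 0.30, adjusted p = 0.00442). CDKB1;1, a plant-specific mitotic kinase, had 2.75, 2.51 and 2.77 CPM in cultured leaves, against 1.69, 1.21 and 1.04 CPM at time 0 (log2 fold change 1.04 ± 0.24, adjusted p = 0.00732). CYCB1;1 had 1.19, 1.08 and 1.86 CPM in cultured leaves, against 0.941, 0.586 and 0.489 CPM at time 0 (log2 fold change 1.04 ± 0.32, adjusted p = 0.0315). Groups were apart by less than 1 CPM in CYCB1;1, and CYCB1;1 was not called without cultured replicate 3 or time 0 replicate 2 or 3 (adjusted p up to 0.154). None of 16 DNA replication genes passed edgeR's test (median 0.37), 0 had an unadjusted p under 0.05 and 0 were called by DESeq2, with PCNA1 at 0.48 ± 0.37. The G1 cyclin CYCD3;2, known to respond to cytokinin, had 16.6, 17.5 and 11.8 CPM in cultured leaves, against 36.5, 44.7 and 29.1 CPM at time 0 (log2 fold change -1.26 ± 0.24, adjusted p = 0.00201). CYCD1;1 had 7.27, 3.97 and 5.99 CPM in cultured leaves, against 22.6, 15.1 and 18.4 CPM at time 0 (log2 fold change -1.70 ± 0.35, adjusted p = 0.00314), and CYCD3;3 was called higher (0.80 ± 0.23). CYCD3;3 was not called without cultured replicate 1 or 2 or time 0 replicate 1 or 3 (adjusted p up to 0.101). Beside 10.4% higher among all genes tested, 3 of 20 ribosomal and nucleolar genes rose, FIB2 (1.72 ± 0.51), AT5G27120 (1.42 ± 0.42) and AT5G15550 (0.68 ± 0.22). Without time 0 replicate 3 the count was 9, and without any other 12-day library it was 0, time 0 replicate 2 being the lowest of its group for 19 of the 20.

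Leaf growth and stomatal genes fell in part. Of 11 GRF, GIF1, ANT and ARGOS genes 4 fell and none rose (median -0.72), none of them in each leave-one-out fit, 2 without time 0 replicate 2 or cultured replicate 1 and 1 without cultured replicate 2 or 3 or time 0 replicate 3. GRF3, a growth-regulating factor, had 3.12, 2.62 and 1.24 CPM in cultured leaves, against 3.25, 11 and 7.8 CPM at time 0 (log2 fold change -1.66 ± 0.41, adjusted p = 0.0104). GIF1, its coactivator, had 0.17, 0.189 and 0.207 CPM after culture and 0.863, 0.621 and 2.21 CPM at time 0 (log2 fold change -2.70 ± 0.85, adjusted p = 0.0372). Calls that did not hold in every leave-one-out fit were those of GRF3 (lost without time 0 replicate 2, adjusted p up to 0.0512) and GIF1 (lost without cultured replicate 1, 2 or 3 or time 0 replicate 3, adjusted p up to 0.15). Of 12 stomatal lineage genes 6 fell and none rose (median -1.64), 4 without time 0 replicate 1, 2 without cultured replicate 2 or time 0 replicate 3 and 1 without cultured replicate 1. EPFL9 (STOMAGEN), a peptide of the mesophyll that promotes stomata, held in each leave-one-out fit, with 6.64, 3.59 and 4.22 CPM in cultured leaves, against 26.4, 17.7 and 35.1 CPM at time 0 (log2 fold change -2.46 ± 0.36, adjusted p = 0.000272) and no overlap. SPCH, which starts the lineage, had 0.0568, 0.108 and 0.118 CPM after culture and 1.02, 0.103 and 0.892 CPM at time 0 (log2 fold change -2.79 ± 0.73, adjusted p = 0.0146), at levels close to the detection limit after culture. EPF2, a peptide of the same lineage, rested on 3 counts after culture, or 8.72-fold lower (95% counting interval 2.62 to 45.5). The leave-one-out fits lost the calls of SPCH (lost without cultured replicate 1 or time 0 replicate 1, adjusted p up to 0.0562) and EPF2 (lost without cultured replicate 1, 2 or 3 or time 0 replicate 3, adjusted p up to 0.604). The log2 fold change of EPF2 was -2.88 ± 0.93 (SE) with all libraries and -0.88 without time 0 replicate 3.

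Wall loosening and water channels fell in part. Of 17 expansin and xyloglucan enzyme genes 4 fell and 2 rose (median -0.76), and without time 0 replicate 2, 6 fell and none rose. EXPA8 had 1.93, 0.135 and 0.856 CPM in cultured leaves, against 203, 38 and 125 CPM at time 0 (log2 fold change -6.97 ± 1.2, adjusted p = 0.000904). EXPA1 had 31.2, 27.2 and 52.7 CPM in cultured leaves, against 689, 222 and 311 CPM at time 0 (log2 fold change -3.46 ± 0.61, adjusted p = 0.00114). XTH17 had 0.483, 0.081 and 0 CPM after culture and 4.63, 7.21 and 7.88 CPM at time 0 (log2 fold change -5.10 ± 1.15, adjusted p = 0.00594). Expansins loosen walls as cells grow, and the cultured libraries of these genes lay well below time 0. EXPA4 (1.19 ± 0.36) and EXPA16 (3.65 ± 0.98) rose. Not called in every leave-one-out fit were EXPA4 (lost without cultured replicate 1 or 3 or time 0 replicate 2 or 3, adjusted p up to 0.137) and EXPA16 (lost without cultured replicate 3 or time 0 replicate 1 or 2, adjusted p up to 0.0849). Of 17 aquaporins 8 fell and 1 rose (median -0.70), 3 and 1 in each leave-one-out fit, and 3 and 1 without cultured replicate 3. TIP2;1, a channel of the vacuole membrane, had 36.1, 41.4 and 28.8 CPM in cultured leaves, against 223, 661 and 348 CPM at time 0 (log2 fold change -3.54 ± 0.75, adjusted p = 0.00372). TIP1;2 had 132, 114 and 96.2 CPM in cultured leaves, against 455, 729 and 469 CPM at time 0 (log2 fold change -2.27 ± 0.44, adjusted p = 0.00221), and PIP2;5 rose, with 6.56, 13.7 and 9.18 CPM after culture and 3.65, 2.28 and 3.54 CPM at time 0 (log2 fold change 1.64 ± 0.35, adjusted p = 0.00392). The groups were apart in all 3.

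Of 18 SPL and TCP genes, which set the pace of leaf ageing and maturation, 1 rose, SPL4 (log2 fold change 1.88 ± 0.53, adjusted p = 0.0202). SPL4 was not called without cultured replicate 2 or time 0 replicate 1 or 3 (adjusted p up to 0.074). SPL9 and SPL10 did not pass with all libraries (-0.33 ± 0.59 and -0.70 ± 0.27). Without time 0 replicate 2 edgeR called 1 higher, SPL4, and 2 lower, SPL10 (-0.89, adjusted p = 0.0479) and TCP3 (-0.75, adjusted p = 0.0383). Without that replicate of both 12 and 15 days it called 2 higher and 5 lower. Of 16 clock genes 3 fell and none rose (median -0.57), beside 9.33% lower and 10.4% higher among all genes tested. The count was 1 without cultured replicate 2 or without time 0 replicate 3. RVE1, a clock-output MYB factor that raises auxin levels, had 7.92, 17.2 and 7.23 CPM in cultured leaves, against 56, 45.3 and 36.9 CPM at time 0 (log2 fold change -2.09 ± 0.51, adjusted p = 0.00922), with no overlap, and CCA1, a core morning factor, did not pass (log2 fold change -0.94 ± 0.69, adjusted p = 0.379). Some leave-one-out fits lost the calls of LUX (lost without cultured replicate 2 or 3 or time 0 replicate 2 or 3, adjusted p up to 0.143) and BOA (lost without cultured replicate 1 or 2 or time 0 replicate 3, adjusted p up to 0.104), which stood at -0.98 ± 0.31 and -1.34 ± 0.40 with all libraries.

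Leaf senescence genes rose in part. Of 15 tested 7 rose and 1 fell (median 1.46), 4 and 1 in each leave-one-out fit, and 4 and 1 without cultured replicate 2 or time 0 replicate 3. SAG13, an early senescence marker, had 27.4, 116 and 134 CPM in cultured leaves, against 0.431, 0.172 and 0.288 CPM at time 0 (log2 fold change 8.28 ± 0.94, adjusted p = 4.26e-05). ANAC019, a stress NAC factor, had 8.57, 17.4 and 41.2 CPM in cultured leaves, against 0.863, 3.21 and 1.84 CPM at time 0 (log2 fold change 3.50 ± 0.69, adjusted p = 0.00232). WRKY45, which acts with gibberellin signalling in age-dependent senescence, had 4.14, 7.99 and 9.12 CPM after culture and 0.274, 1.24 and 0.46 CPM at time 0 (log2 fold change 3.42 ± 0.49, adjusted p = 0.000229). Groups did not overlap in these genes. ORS1, a NAC factor that promotes senescence, was low, with 0.965, 0.405 and 0.738 CPM after culture and 0.0784, 0.069 and 0 CPM at time 0 (log2 fold change 3.84 ± 0.69, adjusted p = 0.0012). VNI2, a NAC repressor that delays senescence, was the one that fell (log2 fold change -1.38 ± 0.29, adjusted p = 0.00401). The central regulators ORE1 and NAP did not pass (0.26 ± 0.70 and 0.18 ± 0.78), and SAG12, the marker of late senescence, had 0 counts in all 6 libraries.

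Amino acid breakdown and autophagy changed little as lists. Of all genes tested, 10.4% rose and 9.33% fell. Of 12 breakdown genes 3 rose and 1 fell (median -0.26), with 2 calls left without cultured replicate 2. BCAT2, a branched-chain aminotransferase of the plastid, had 8.43, 25.7 and 16.4 CPM in cultured leaves, against 0.0392, 1.28 and 0.805 CPM at time 0 (log2 fold change 4.55 ± 0.89, adjusted p = 0.00226). AT1G21400, a subunit of the branched-chain ketoacid dehydrogenase, had 135, 256 and 251 CPM in cultured leaves, against 42.3, 69.6 and 45.5 CPM at time 0 (log2 fold change 2.03 ± 0.33, adjusted p = 0.000629). The groups were apart in both. GDH1, a glutamate dehydrogenase of carbon starvation, fell (-1.60 ± 0.44, or -0.96 without time 0 replicate 2). Calls that did not hold in every leave-one-out fit were those of GDH1 (lost without cultured replicate 2 or 3 or time 0 replicate 2, adjusted p up to 0.113) and LKR (lost without cultured replicate 2, adjusted p up to 0.0635). Time 0 replicate 2 was the highest of its group for 12 of the 12 genes. Of 14 autophagy genes 3 rose, all of the ATG8 family of autophagosome coat proteins, ATG8G (log2 fold change 0.94 ± 0.22, adjusted p = 0.00719), ATG8B (0.80 ± 0.22) and ATG8D (0.59 ± 0.16). The leave-one-out fits lost the calls of ATG8B (lost without cultured replicate 2 or 3 or time 0 replicate 1 or 2, adjusted p up to 0.0687) and ATG8D (lost without cultured replicate 2 or time 0 replicate 2, adjusted p up to 0.0646). ATG8G was the one call left without cultured replicate 2.

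The same comparison was made at 9 and 15 days. At 9 days 1219 genes rose (5.82%) and 780 fell (3.72%) in cultured leaves, and at 15 days 4417 rose (21.1%) and 4361 fell (20.8%). The difference between the responses at 12 and 9 days passed for 11 genes (0.0525% of those tested), 3 higher (0.0143%) and 8 lower (0.0382%) at 12 days. The difference between 12 and 15 days passed for 582 genes (2.78%), 172 higher (0.821%) and 410 lower (1.96%) at 12 days. Without 12-day time 0 replicate 2 these counts were 16 (0.0754%) and 1227 (5.78%). At 15 days too, time 0 replicate 2 stood apart, and its deviation from its group correlated at 0.683 across genes with that of 12-day time 0 replicate 2. A test passed at 1 age and missed at another does not show a difference, so only genes that passed the test of the difference itself are described as differing.

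**Figure D5:**
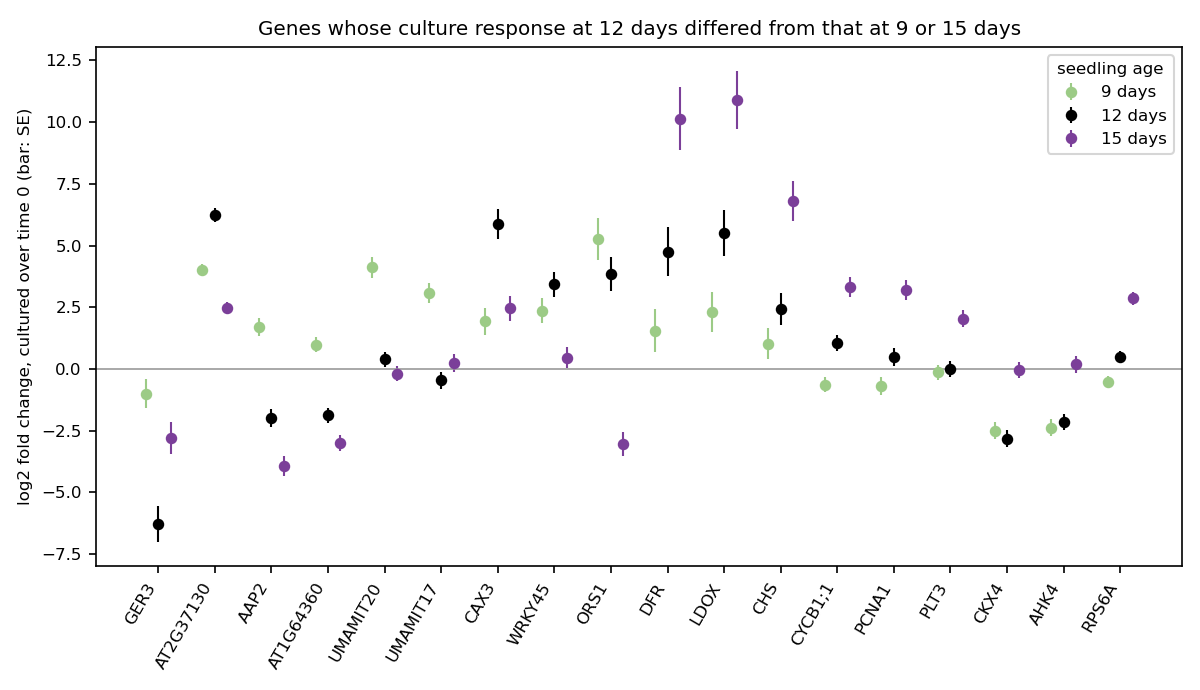
Log2 fold change (cultured over time 0 leaves) with its standard error at 9, 12 and 15 days for 18 genes whose response at 12 days differed from that at 9 or at 15 days. The 12-day points lie outside those of both 9 and 15 days for GER3, AT2G37130, CAX3, WRKY45, UMAMIT17 and CKX4. They lie between them for the other genes shown, among them DFR, LDOX, CHS, CYCB1;1, PCNA1 and RPS6A.

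The peroxidase gene AT2G37130 differed from both other ages. At 9 days it had 24.9, 15.5 and 14.6 CPM in cultured leaves, against 1.04, 0.959 and 1.38 CPM at time 0, at 12 days 41.8, 45.8 and 57.4 CPM in cultured leaves, against 0.47, 0.69 and 0.748 CPM at time 0, and at 15 days 29.6, 28.8 and 29 CPM in cultured leaves, against 5.09, 4.5 and 6.06 CPM at time 0. Its response was 6.23 ± 0.28 at 12 days, higher than at 9 days by 2.22 ± 0.34, adjusted p = 0.0263 and than at 15 days by 3.75 ± 0.33, adjusted p = 0.000221, with no overlap of groups at any age. GER3 was lower than at 9 days, by -5.27 ± 0.87, adjusted p = 0.0436, and than at 15 days, by -3.49 ± 0.88, adjusted p = 0.047. It had 258, 292 and 354 CPM in cultured leaves, against 614, 644 and 565 CPM at time 0 at 9 days, where the groups lay near each other, and 0.66, 0.601 and 0.74 CPM in cultured leaves, against 6.6, 4.24 and 3.18 CPM at time 0 at 15 days.

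Of the 11 genes whose response differed from that at 9 days, a count that leave-one-out fits took to between 0 and 53, 4 had the following values. AAP2, which loads amino acids into the phloem, had 36.3, 41.2 and 33.7 CPM in cultured leaves, against 15.6, 7.82 and 10.8 CPM at time 0 at 9 days and 23.2, 27.7 and 40.3 CPM in cultured leaves, against 169, 121 and 73.5 CPM at time 0 at 12 days, so that it rose at 9 days and fell at 12 (difference -3.69 ± 0.52, adjusted p = 0.0263). UMAMIT20, an amino acid exporter, had 4, 3.25 and 5.11 CPM in cultured leaves, against 0.283, 0.258 and 0.184 CPM at time 0 at 9 days and 20.7, 27.8 and 19 CPM in cultured leaves, against 15, 25.3 and 11.4 CPM at time 0 at 12 days (difference -3.73 ± 0.51, adjusted p = 0.0263), and UMAMIT17 followed it (difference -3.53 ± 0.52, adjusted p = 0.0263). The uncharacterized gene AT1G64360 had a log2 fold change of 0.98 ± 0.30 at 9 days, -1.89 ± 0.31 at 12 and -3.00 ± 0.32 at 15 days, and its difference from 9 days was -2.87 ± 0.43, adjusted p = 0.0263.

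Flavonoid genes rose more at 15 days. Of the 29, 12 rose at 9 days, 24 at 12 and 25 at 15, with 1 lower at 15 days, and medians were 1.68, 2.85 and 6.36. The shares higher among all genes tested were 5.82%, 10.4% and 21.1%. The difference from 15 days passed for 11 of the 29, all lower at 12 days, beside 1.96% of all genes. DFR had 470, 552 and 439 CPM in cultured leaves, against 213, 212 and 79.1 CPM at time 0 at 9 days and 584, 895 and 567 CPM in cultured leaves, against 0.23, 0.964 and 0.611 CPM at time 0 at 15 days, and its log2 fold changes were 1.54 ± 0.87, 4.75 ± 0.99 and 10.14 ± 1.28, a difference of -5.38 ± 1.33, adjusted p = 0.044 between 12 and 15 days. LDOX (-5.40 ± 1.2, adjusted p = 0.0312), CHS (-4.39 ± 0.93, adjusted p = 0.0274) and TT8 (-5.05 ± 1.18, adjusted p = 0.036) differed in the same direction. The 12-day log2 fold change of DFR was 7.33 without 12-day time 0 replicate 1. In that fit the difference from 15 days passed for 189 genes, against 582 with all libraries. Cultured levels of DFR were alike at the 3 ages, and the time 0 levels were lowest at 15 days and highest at 9.

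Mitotic and ribosomal genes were among those that differed from 15 days. Among all genes tested 5.82% rose and 3.72% fell at 9 days, 10.4% rose at 12 and 21.1% at 15. The difference from 15 days was lower at 12 days for 1.96%. Of the 21 mitotic genes edgeR's test called none higher at 9 days (0 had an unadjusted p under 0.05) and 6 lower. At 12 days 7 rose and at 15 days 20 rose. The difference from 15 days passed for 7 of the 21 mitotic genes, all lower at 12 days. For their difference from 9 days edgeR called 0, with 16 at an unadjusted p under 0.05, all higher at 12 days, and DESeq2 called 12. CYCB1;1 had 2, 2.25 and 2.4 CPM in cultured leaves, against 3.37, 3.91 and 3.1 CPM at time 0 at 9 days and 0.66, 0.575 and 0.938 CPM in cultured leaves, against 0.0984, 0.0643 and 0.0489 CPM at time 0 at 15 days (difference of 12 from 15 days -2.29 ± 0.51, adjusted p = 0.0308), and PCNA1 had 14.4, 11.2 and 8.39 CPM in cultured leaves, against 2.13, 1.09 and 0.489 CPM at time 0 at 15 days (difference -2.73 ± 0.54, adjusted p = 0.0207). Cultured levels of CYCB1;1 were within a few-fold at all 3 ages, while time 0 levels were highest at 9 days and lowest at 15. Of 20 ribosomal and nucleolar genes edgeR's test called none higher at 9 days (0 had an unadjusted p under 0.05), 3 at 12 and 20 at 15, and for 5 the difference from 15 days passed, all lower at 12 days. Their difference from 9 days gave 0 calls with edgeR, 13 at an unadjusted p under 0.05, all higher at 12 days, and 0 with DESeq2. RPS6A differed by -2.38 ± 0.36, adjusted p = 0.00641, and the regeneration factor PLT3 by -2.05 ± 0.47, adjusted p = 0.0324. Among cytokinin genes CKX4 and AHK4 fell at 9 and 12 days and not at 15, with differences from 15 days of -2.77 ± 0.47, adjusted p = 0.011 and -2.34 ± 0.48, adjusted p = 0.0239.

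Higher at 12 than at 15 days were AT4G16260, a glycosyl hydrolase (4.97 ± 1.16, adjusted p = 0.036), CAX3, a vacuolar cation exchanger (3.42 ± 0.73, adjusted p = 0.0285), and the senescence factors ORS1 (6.89 ± 0.82, adjusted p = 0.00214) and WRKY45 (2.96 ± 0.63, adjusted p = 0.0282). CAX3 had 15.3, 56.7 and 44.7 CPM in cultured leaves, against 0.392, 1.14 and 0.46 CPM at time 0 at 12 days, where its groups were far apart, and 78.4, 68.4 and 77.3 CPM in cultured leaves, against 17.2, 8.68 and 15.2 CPM at time 0 at 15 days. ORS1 had 2.19, 2.46 and 1.71 CPM in cultured leaves, against 27.8, 13.5 and 11.3 CPM at time 0 at 15 days, so that it fell there and rose, from a low level, at 12 days. Of all genes tested 3.72% fell at 9 days, 9.33% at 12 and 20.8% at 15. Of 37 photosystem genes none was called at 9 days by edgeR's test (3 had an unadjusted p under 0.05), 13 fell at 12 days and 26 at 15. Of 15 Calvin cycle genes 4 fell at 9 days, 13 at 12 and 11 at 15. For none of these 52 genes did edgeR's test call a difference of 12 from 9 or 15 days. At an unadjusted p under 0.05 there were 9 of them for 9 days and 5 for 15 days, and DESeq2 called 2 and 2.

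The genes that most set time 0 replicate 2 apart are given as values with no test. XTR6, a xyloglucan endotransglycosylase, had 9.43, 8.45 and 4.37 CPM in cultured leaves, against 0.0784, 43.9 and 0.92 CPM at time 0, and the peroxidase gene AT5G39580 had 15.2, 9.93 and 19.6 CPM in cultured leaves, against 0.0392, 8.83 and 0.259 CPM at time 0. LSU1, a gene of low sulfur, had 183, 146 and 139 CPM in cultured leaves, against 54.2, 0.897 and 46 CPM at time 0. In XTR6 and AT5G39580 time 0 replicate 2 was above both other time 0 libraries by far, and in LSU1 it was below both. Beside these, it was the highest of its group in sugar starvation and amino acid breakdown genes and the lowest in flavonoid and ribosomal genes, as given above, and the part of this library's state in the 12-day response was tested only by leaving it out.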

How the data were processed

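RNA-seq of 18 libraries of detached or freshly taken leaves was used, 3 per group in 6 groups, and the report rests on the 6 libraries of 12-day leaves. The deposited tables hold RSEM expected counts and TPM (transcripts scaled by length and library) per locus, per the file headers. Per the submitters' processing notes the authors used Trimmomatic, STAR 2.5.3, RSEM 1.3.0 and the TAIR10 build. RSEM divides reads that fit several copies, so close paralogs are uncertain, and no label or header says whether strand was used. TPM values were not set between groups.

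Expected counts were rounded and tested with edgeR 4.0.16 (R 4.3.3): TMM scaling, a filter with a minimum count of 10, 6 group means, quasi-likelihood F tests on 20952 genes and Benjamini-Hochberg adjustment at 0.05. Every adjusted p in the text is from this test, and a standard error is the log2 fold change divided by the root of F. The contrast is cultured minus time 0 at 12 days, and the differences of this contrast from those at 9 and 15 days. The common biological coefficient of variation was 0.34. DESeq2 1.42.0 and limma 3.58.1 served as alternative and support, and tables were made with Python 3.11.15, pandas 2.3.3, numpy 2.4.6, SciPy 1.17.1 and matplotlib 3.10.9. The procedure was checked on simulated counts with known changes.

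Gene lists (46, with 747 loci, 694 of them tested) and the members of the comparison were chosen with earlier results of these data known, so no list or p adjusted over a list is independent evidence. Of 37686 loci, 37390 matched the TAIR10.1 annotation used for names, positions and promoters, and 99.1% of 16745 single-transcript coding genes agreed in length with it to 0.5 nt. Genes named were the 12 largest changes each way called with and without time 0 replicate 2, at a mean of at least 5 CPM and with groups apart, the 10 largest differences in CPM, up to 5 called members per list, members moving against their list or at 0 to 3 counts, a fixed set of regulators, the 6 largest differences each way from 9 and 15 days, and the 6 genes each way in which time 0 replicate 2 deviated most, of which those without a role to give are left out here. Genes printed as values that did not pass were added for their roles. A fold against a group with no count is a bound against 3 counts over that group, and intervals and floors cover counting error only. Alternatives left out each library in turn, changed scaling, filter and tool, added a replicate block or a term for replicate 3, or used fewer libraries. Some genes of the lists are counted in them and not reported here by name.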

Additional observations from a re-analysis of the deposited data

Results flagged for a closer look

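Genes named above were set apart here where edgeR's test of the difference itself, over all 20952 genes, passed between the 12-day response and that of another age. Values are differences of log2 fold changes, 12 days minus the other age.

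Against 9 days the gene AT2G37130 was higher at 2.22, and GER3 (-5.27), UMAMIT20 (-3.73), AAP2 (-3.69), UMAMIT17 (-3.53) and AT1G64360 (-2.87) were lower. With 11 genes called in all, edgeR called 0 in 6 of the 12 fits that left out a library of 9 or 12 days, where 1687 to 2116 genes had an unadjusted p under 0.05. None of these calls therefore held in every leave-one-out fit. These 6 fits left out 9-day time 0 replicate 1, 2 or 3, 9-day cultured replicate 2, or 12-day cultured replicate 2 or 3. Without 12-day cultured replicate 1 the count was 53. The cause of these shifts was not tested.

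Against 15 days the flavonoid genes 5MAT (-5.84), UF3GT (-5.73), LDOX (-5.40), DFR (-5.38), TT19 (-5.37), TT8 (-5.05), CHS (-4.39), CHIL (-3.75) and PAL1 (-2.03) were lower at 12 days. So were PCNA1 (-2.73), RPS6A (-2.38), CYCB1;1 (-2.29), PLT3 (-2.05) and EXPA4 (-2.22) of growth, CKX4 (-2.77) and AHK4 (-2.34) of cytokinin, and the germin-like GER3 (-3.49). Higher at 12 days were PRX37 (9.76), ORS1 (6.89), AT4G16260 (4.97), AT2G37130 (3.75), CAX3 (3.42), WRKY45 (2.96), AT1G21400 (1.97) and PPH (1.68). Among these PRX37 had no count at 12-day time 0, so that its fitted value is no bound. Without 12-day time 0 replicate 1 the 12-day log2 fold change was 7.11 for 5MAT, 6.82 for UF3GT and 7.33 for DFR. With all libraries it was 4.73, 4.51 and 4.75. The fit without that library called 189 genes for the difference from 15 days, against 582.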

How the results depend on the processing

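The 4135 genes called at 12 days became 2089 (1113 higher and 976 lower) with replicates 1 and 2 alone and 2634 (1358 and 1276) with the 6 libraries of 12-day leaves alone. They ranged from 2714 (without cultured replicate 2) to 3571 (without time 0 replicate 3) when a library was left out. No called gene named here turned direction under any of these alternatives. Of 284 called members and named genes 184 stayed called in all 6 leave-one-out fits, and in 97 the fold moved by over 1.5 times without some library. Members called, 254 with all libraries, were 155 with replicates 1 and 2 alone and 182 to 222 with a library left out.

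The 11 genes of the 12 minus 9 days difference became 59 with a term for replicate 3, 58 without time 0 replicate 2 of both 12 and 15 days and 444 with DESeq2. With replicates 1 and 2 alone edgeR called 0 (2119 at an unadjusted p under 0.05), and leave-one-out fits gave 0 to 53. The 582 of the 12 minus 15 days difference became 1272 with the term, 1505 without both libraries, 1476 with DESeq2 and 0 with replicates 1 and 2 alone (2882 unadjusted, edgeR). Leave-one-out fits gave 116 (without cultured replicate 2 of 12 days) to 1227 (without time 0 replicate 2 of 12 days). The causes of these shifts were not tested. Scaling by library totals alone, given above, was chosen after seeing the data and left 277 members called.

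Deviations of the 12-day libraries with the same replicate number correlated at -0.154, 0.115 and 0.23. Those of time 0 replicate 2 at 12 and 15 days correlated at 0.683. These few values cannot decide whether a replicate number marks a shared batch, which the labels do not state. A replicate block gave 5575 genes at 12 days, 292 members (23 of the 37 photosystem and antenna genes, all lower), 50 genes for the difference from 9 days and 1442 for that from 15 days. With 3 libraries a group, changes of genes at a few counts or in a few cells were not detectable at this depth in every fit.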
